A study of Mus musculus with 108 samples.

Results

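The cerebellum of wild-type (WT) mice was followed from E17.5, named for the day of embryonic life, to P7, the end of the first week after birth, the interval in which the progenitors of its granule neurons expand. The comparison rests on the WT cerebellum libraries of these ages, 6 at E17.5 and 6 at P7, which are 12 of the 108 libraries of the series. The study set mice with 1 disrupted copy of Cul3 (Cul3+/-), a gene for a scaffold of ubiquitin ligases, against WT mice in cortex (CX), hippocampus (HIP) and cerebellum (CB), with embryos, P7 pups and adults as its periods. Each library held total RNA from 1 region of 1 mouse, so the 12 libraries are 12 mice, and all of them carry the genotype wild type and the background C56Bl/6N, as the labels spell it, with no treatment named. Ribosomal RNA was removed, and every library was made from the same amount of total RNA, so a level is a share of the RNA in a library. The labels give neither the sex nor the litter of a mouse, and the age groups cannot be told apart from the litters, the days of dissection and the sequencing runs that may go with them.

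Granule neuron progenitors leave the rhombic lip before birth, cover the surface of the cerebellum as the external granule layer and divide there through the first postnatal weeks, driven by Sonic hedgehog that Purkinje cells release. Progenitors that leave the cell cycle extend parallel fibres, migrate inward along Bergmann glia and mature into granule neurons, the most numerous neurons of the brain. Purkinje cells are born and specified earlier, and in the first postnatal week they begin to build their dendrites and synapses while glia form and myelination begins.

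The library totals ran from 28138816 to 42071420 counts. Levels are CPM, counts scaled to a common library size after normalisation by TMM. Pearson's r of log2 CPM between libraries ran from 0.9801 to 0.9921 within an age and from 0.9139 to 0.949 between ages, and the first principal component, with 74.5% of the variance, separated the ages. Cul3 lay between 203 and 223 CPM in the E17.5 WT libraries and between 217 and 236 CPM in the P7 WT libraries, above the 114 to 137 CPM of the Cul3+/- cerebellum at E17.5 and the 123 to 134 CPM at P7, with no overlap between genotypes. The tissue label was matched by En2, a midbrain-hindbrain transcription factor, with a median of 92.1 CPM at E17.5 and 104 CPM at P7, against at most 0.118 CPM in cortex and 0.176 CPM in hippocampus of the same mice. Of the 14 forebrain markers, 8 did not pass the filter on low counts, Emx1 and Emx2 among them. The 6 that passed summed to 70.4 to 75.5 CPM at E17.5 and 45.2 to 52.0 CPM at P7. Some libraries stood apart within their age. At P7, replicates 6 and 1 held more choroid plexus RNA than the others, with summed marker levels of 2056 and 618 CPM. At E17.5, replicates 3 and 4 held more blood RNA and fewer transcripts of mitosis genes. They are the WT cerebellum libraries with the sample name prefix E17_5_S3, whose meaning the labels do not give, so they may not be independent of each other. The same holds for other libraries that share a prefix. These are E17.5 replicates 1 and 2, E17.5 replicates 5 and 6, P7 replicates 1 and 2, and P7 replicates 3, 4 and 6. By the Y-linked gene Ddx3y and by Xist, 2 of the E17.5 mice and 3 of the P7 mice were male, so the sexes were not balanced between the ages. The study states 3 males and 3 females per genotype and period, which the E17.5 libraries did not match.

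Of the 17648 genes that passed the filter, 6541 (37.1%) were higher and 6778 (38.4%) lower at P7 at an adjusted p of 0.1 in edgeR's quasi-likelihood test with Benjamini-Hochberg adjustment, here named a call. A called gene is said to rise or to fall, and every log2 fold change is P7 over E17.5, with ± its SE over 6 libraries of each age. These shares are the background for the counts of each list, since a list with 37.1% of its members higher and 38.4% lower does not stand out from all genes. A value in parentheses after a gene is its log2 fold change. At least 2-fold changes were less common, with 1622 genes (9.19%) higher and 1729 genes (9.8%) lower, and 218 genes rose and 123 fell by at least 8-fold. In 4360 genes (24.7%) every P7 library lay above every E17.5 library and the gene was called higher, and in 4332 genes (24.5%) every P7 library lay below and the gene was called lower. The median log2 fold change over all genes tested was −0.016. In bulk tissue, fewer cells of a type and less RNA per cell cannot be told apart, which holds for every level below.

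**Figure D1:**
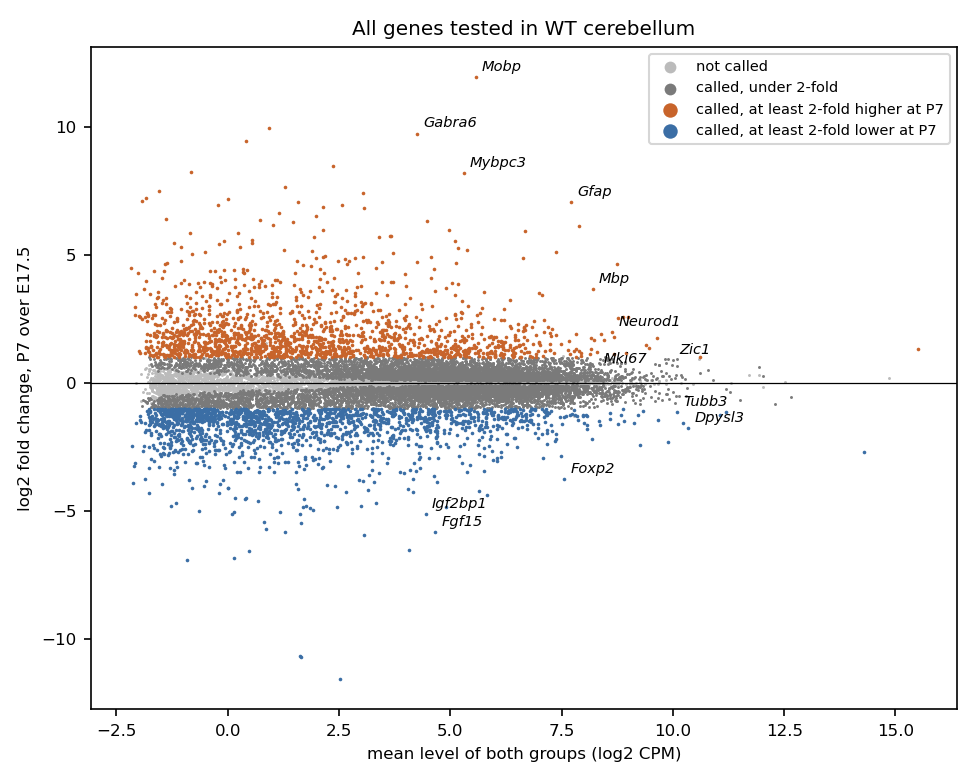
Each point is 1 of the 17648 genes tested in WT cerebellum, with its mean level over both ages in log2 CPM on the horizontal axis and its log2 fold change, P7 over E17.5, on the vertical axis. The 1622 genes at least 2-fold higher (orange) and the 1729 at least 2-fold lower (blue) lie on both sides of 0, and the rises of Mobp and Gabra6 exceed the falls of the genes named in the plot in size.

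Genes of mitosis were higher at P7, by small steps. All 24 genes of the mitosis list rose (100% against 37.1% of all genes), with log2 fold changes between 0.19 and 0.81 and a median of 0.51, and none reached a 2-fold change. Their summed level ran from 1435 to 1935 CPM at E17.5 and from 2011 to 2692 CPM at P7, so the 2 ages did not overlap in the sum, and 10 of the 24 genes did not overlap by themselves. Mki67, a protein of dividing nuclei used to stain them, stood at 216 to 286 CPM (median 256) at E17.5 and 318 to 429 CPM (median 382) at P7 (log2 fold change 0.55 ± 0.078, adjusted p = 1.87e-05). Top2a, the topoisomerase that untangles chromosomes, stood at 259.8 to 367 CPM (median 326) at E17.5 and 392 to 533 CPM (median 466) at P7 (log2 fold change 0.52 ± 0.091, adjusted p = 0.000145). Every P7 library was above every E17.5 library for both genes. Cdc20, the activator of the anaphase-promoting complex, stood at 33.7 to 53.8 CPM (median 41.8) at E17.5 and 54.1 to 79.9 CPM (median 74.2) at P7 (log2 fold change 0.72 ± 0.11, adjusted p = 4.96e-05), again without overlap. Cdk1, the kinase that drives entry into mitosis, stood at 39.9 to 60.5 CPM (median 47.9) at E17.5 and 53.2 to 75.8 CPM (median 70.7) at P7 (log2 fold change 0.47 ± 0.11, adjusted p = 0.00126). Its partner Ccnb1, cyclin B1, stood at 62.2 to 90.2 CPM (median 78.7) at E17.5 and 80.4 to 124 CPM (median 114) at P7 (log2 fold change 0.51 ± 0.10, adjusted p = 0.000589). For both of these genes the lowest P7 library lay within the range of E17.5. Among the others without overlap, the largest log2 fold changes were those of Ube2c, a ubiquitin-conjugating enzyme of mitotic exit (0.79), of Ccna2, cyclin A2 (0.78), and of Ccnb2, cyclin B2 (0.71). Replicates 3 and 4 had the lowest sums at E17.5 (1518 and 1435 CPM), and 22 of the 24 genes were called without them.

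The DNA replication list changed in the same direction and by less. Of its 27 genes, 21 rose (77.8%), 1 fell and 5 were not called, with a median log2 fold change of 0.42, and 11 of those that rose did not overlap between ages. Pcna, the sliding clamp of the replication fork, stood at 114 to 171 CPM (median 138) at E17.5 and 169 to 226 CPM (median 199) at P7 (log2 fold change 0.49 ± 0.092, adjusted p = 0.000239). Mcm5, a subunit of the replicative helicase, stood at 65.6 to 94.7 CPM (median 77.5) at E17.5 and 92.1 to 129 CPM (median 109) at P7 (log2 fold change 0.45 ± 0.10, adjusted p = 0.000673). In both genes the ages overlapped. Rrm2, which makes deoxynucleotides, stood at 51.96 to 77.02 CPM (median 64.1) at E17.5 and 78.3 to 109 CPM (median 94.9) at P7 (log2 fold change 0.54 ± 0.093, adjusted p = 0.000115), and its ages did not overlap. E2f2, a transcription factor of the S phase programme, had the largest change of the list at 10.6 to 14.5 CPM (median 13.1) at E17.5 and 26.4 to 34.99 CPM (median 28.9) at P7, a log2 fold change of 1.20, and it was the only member past 2-fold. On the log2 scale the change was 0.67 for E2f1, 0.68 for the flap nuclease Fen1, 0.56 for Uhrf1, which directs maintenance methylation, and 0.19 for the helicase subunit Mcm2. The members not called were Mcm4, Mcm6, Gins2, Cdc6 and Lig1, and Rfc3, a clamp loader subunit, was the member that fell (−0.18). Without E17.5 replicates 3 and 4, 17 of the 27 genes were called higher, and Mcm2 was no longer among them (log2 fold change 0.15, adjusted p = 0.157). Rfc3 was not called without P7 replicates 1 and 6 together (−0.14).

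For the mitosis and replication genes the promoters were taken from the RefSeq promoter table on GRCm38.p6, which holds 250 bases before and 50 bases after the start of each gene. Promoters of mitosis genes are known for CCAAT boxes, bound by NF-Y, and for the cell cycle homology region, whose core reads TTTGAA, and those of replication genes for E2F sites such as TTTCGCGC and TTTGGCGC. Each motif was searched on both strands. A gene counts as a match if any of its promoters holds the motif. CCAAT was present in 16 of the 19 mitosis genes in the table (84.2%), in 37.4% of all 32851 promoters and in 41.1% of gene symbols. TTTGAA was present in 14 of 19 (73.7%), in 17.9% of all promoters and in 20.2% of symbols. Both were present in 13 of the 19, in any of their promoters. Both in the same promoter were present in 7.97% of all gene symbols in the table. TTTCGCGC was present in 6 of 23 replication genes (26.1%), in 0.323% of all promoters and in 0.374% of symbols. TTTGGCGC was present in 6 of 23 (26.1%), in 0.514% of all promoters and in 0.585% of symbols. Of the replication genes with TTTCGCGC 3 rose, and of those with TTTGGCGC 5 rose. Both E2F motifs were present in Mcm5 and Mcm6, where they overlap on opposite strands. The lines give 160 bases before the start of 5 genes, 5′ to 3′ on the strand of the gene, with capitals for the letters of all 4 motifs in each line (CCAAT reads ATTGG and TTTGAA reads TTCAAA on the other strand, and the E2F motifs read GCGCGAAA and GCGCCAAA). A match describes the letters only.
Top2a, chr11:99024190-99024349, minus strand: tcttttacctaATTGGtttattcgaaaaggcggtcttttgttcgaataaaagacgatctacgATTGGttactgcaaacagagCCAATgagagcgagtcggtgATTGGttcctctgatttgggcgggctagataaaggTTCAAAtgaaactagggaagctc
Cdk1, chr10:69352913-69353072, minus strand: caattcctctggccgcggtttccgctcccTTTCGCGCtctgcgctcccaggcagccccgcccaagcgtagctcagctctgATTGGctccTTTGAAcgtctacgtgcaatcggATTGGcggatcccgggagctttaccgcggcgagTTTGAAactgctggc
Cdc20, chr4:118437344-118437503, minus strand: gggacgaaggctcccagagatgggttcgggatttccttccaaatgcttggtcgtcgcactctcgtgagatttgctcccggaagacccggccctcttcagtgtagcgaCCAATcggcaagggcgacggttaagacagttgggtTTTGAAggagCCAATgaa
Mcm5, chr8:75109349-75109508, plus strand: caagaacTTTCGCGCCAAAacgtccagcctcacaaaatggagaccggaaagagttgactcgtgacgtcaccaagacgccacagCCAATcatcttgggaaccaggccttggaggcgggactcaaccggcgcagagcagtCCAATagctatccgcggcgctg
Mcm6, chr1:128359706-128359865, minus strand: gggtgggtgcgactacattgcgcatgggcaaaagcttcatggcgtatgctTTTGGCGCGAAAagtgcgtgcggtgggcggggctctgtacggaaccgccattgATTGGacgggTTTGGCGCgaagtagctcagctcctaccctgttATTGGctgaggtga
Of these 5 genes, Top2a, Cdk1, Cdc20 and Mcm5 rose, and Mcm6, with the same pair of E2F motifs as Mcm5, stood at 148 to 194 CPM (median 165) at E17.5 and 142 to 207 CPM (median 175) at P7 and was not called.

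Among the inhibitors of the cell cycle, 7 of the 13 genes tested rose, 3 fell and 3 were not called, with a median log2 fold change of 0.18, and both directions held members past 2-fold. Cdkn1b, the inhibitor p27 that accumulates as granule progenitors leave the cycle, stood at 71.4 to 105 CPM (median 88.4) at E17.5 and 199 to 234 CPM (median 213) at P7 (log2 fold change 1.299 ± 0.078, adjusted p = 3.34e-09). Cdkn2c, which inhibits the cyclin D kinases, stood at 9.79 to 18.5 CPM (median 14.4) at E17.5 and 35.02 to 42.98 CPM (median 36.2) at P7 (log2 fold change 1.39 ± 0.12, adjusted p = 1.36e-07). Cdkn1c, an imprinted inhibitor of embryonic tissues, went the other way, at 93.3 to 148 CPM (median 114) at E17.5 and 35.7 to 56.1 CPM (median 38.9) at P7 (log2 fold change −1.45 ± 0.14, adjusted p = 3.56e-07). None of these 3 overlapped between the ages. As log2 fold changes the values were 0.91 for Trp53, 0.29 for Cdkn2d and 1.11 for Cdkn2b, which stayed below 1 CPM in every library and had a log2 fold change of 0.73 without E17.5 replicates 3 and 4. In the cell cycle inhibitors list, Cdkn1a (−0.51) and Rbl2 (−0.13) fell, Rb1 (−0.0036), Rbl1 (0.073) and Btg3 (0.15) were not called and Cdkn2a did not pass the filter on low counts. Btg3 was called higher without P7 replicate 1 or P7 replicates 1 and 6 together (0.24 to 0.30). Rbl1 was called higher without P7 replicate 6 (0.12). Rbl2 was not called without E17.5 replicate 6 or P7 replicate 1, 2 or 6 or P7 replicates 1 and 6 together (−0.10 to −0.066).

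**Figure D2:**
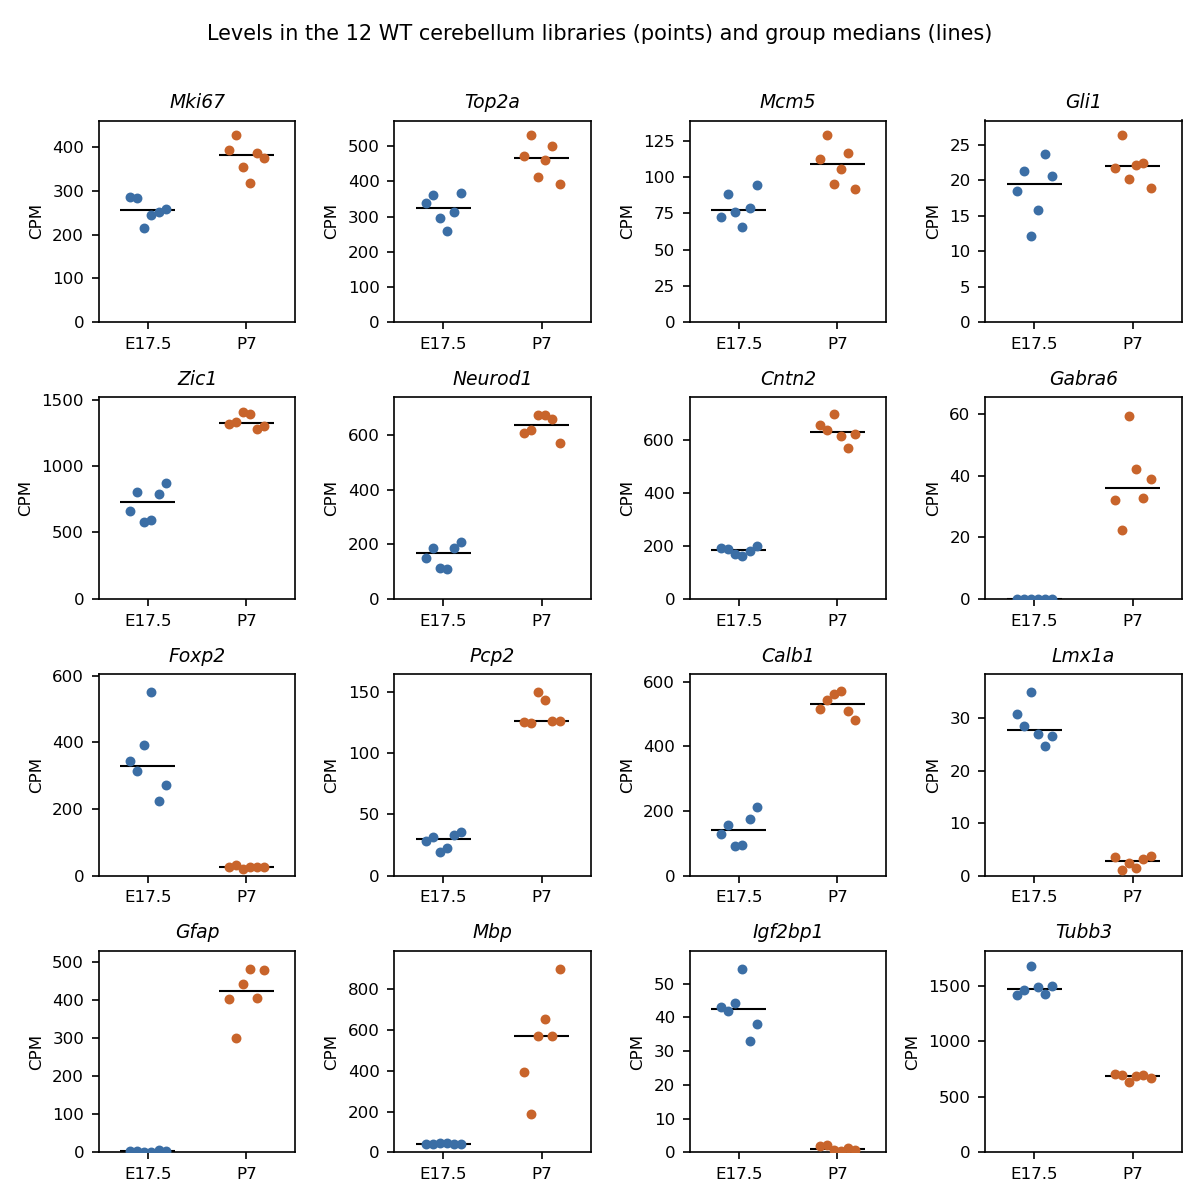
Levels in CPM of 16 genes in each of the 12 WT cerebellum libraries, with E17.5 in blue, P7 in orange and a line at each group median, on axes that start at 0. In Mki67, Zic1, Neurod1, Cntn2, Gabra6, Pcp2, Calb1, Gfap and Mbp all P7 libraries lie above the E17.5 libraries, in Foxp2, Lmx1a, Igf2bp1 and Tubb3 all lie below, and in Gli1 the ages overlap.

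The markers of granule cell progenitors were mostly higher at P7, though Atoh1 was not. Of the 14 genes, 11 rose (78.6%) and 3 fell, 1 of these at least 2-fold (−1.06) and without overlap, with a median log2 fold change of 0.74, and 10 of those that rose did not overlap between ages. The list also holds Zic1 and Nhlh1, described below as genes of granule neurons as well, so its rise is not that of dividing progenitors alone. Atoh1, the transcription factor that founds the lineage and keeps progenitors dividing, fell and stood at 24.7 to 35.2 CPM (median 28.7) at E17.5 and 17.2 to 28.1 CPM (median 23.6) at P7 (log2 fold change −0.36 ± 0.11, adjusted p = 0.0071). Its ages overlapped. Zic1, a transcription factor of progenitors and granule neurons, stood at 577 to 871 CPM (median 728) at E17.5 and 1281 to 1404 CPM (median 1324) at P7 (log2 fold change 0.90 ± 0.093, adjusted p = 7.78e-07). Pax6, which marks the lineage from the rhombic lip onward, stood at 117 to 196 CPM (median 176) at E17.5 and 254 to 275 CPM (median 261) at P7 (log2 fold change 0.68 ± 0.11, adjusted p = 8.53e-05). Barhl1, a target of Atoh1, stood at 52.7 to 86.5 CPM (median 74.7) at E17.5 and 99.1 to 117 CPM (median 111) at P7 (log2 fold change 0.62 ± 0.094, adjusted p = 3.65e-05). All P7 libraries were above all E17.5 libraries for these 3 genes. Barhl2 stood at 3.71 to 12.7 CPM (median 9.69) at E17.5 and 34.4 to 41.3 CPM (median 37.8) at P7, a log2 fold change of 2.12. The Wnt antagonist Sfrp1 stood at 32.95 to 41.9 CPM (median 37.4) at E17.5 and 152 to 184 CPM (median 157) at P7, a log2 fold change of 2.14, and the matrix protein Mfap4 at 27.6 to 39.2 CPM (median 34.8) at E17.5 and 104 to 134 CPM (median 116) at P7, a log2 fold change of 1.79. None of these 3 overlapped either. The Sonic hedgehog coreceptor Boc was among those that fell (−0.26). Meis1, an activator of Pax6, rose by the least (0.11), and without E17.5 replicates 3 and 4, which had the lowest summed level of the list at E17.5, it was not called (0.066).

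The Sonic hedgehog pathway showed no common direction. Of its 22 genes tested, 7 rose, 10 fell and 5 were not called, shares near those of all genes (31.8% and 45.5%), with a median log2 fold change of −0.07. Shh itself, the ligand, was low at both ages, at 2.15 to 3.11 CPM (median 2.83) at E17.5 and 1.74 to 2.595 CPM (median 2.02) at P7 (log2 fold change −0.42 ± 0.13, adjusted p = 0.0108). The receptor Ptch1 stood at 105 to 137 CPM (median 123) at E17.5 and 121 to 128 CPM (median 125) at P7 (log2 fold change 0.031 ± 0.056, adjusted p = 0.636). The signal transducer Smo stood at 76.98 to 93.2 CPM (median 81.6) at E17.5 and 92.3 to 113 CPM (median 102) at P7 (log2 fold change 0.28 ± 0.064, adjusted p = 0.00125). The ages overlapped in all 3 genes. The target genes Ptch1, Gli1, Hhip, Mycn and Ccnd1 were not called. Gli1, the transcription factor that serves as its usual readout, stood at 12.1 to 23.8 CPM (median 19.5) at E17.5 and 18.96 to 26.4 CPM (median 22.02) at P7 (log2 fold change 0.24 ± 0.13, adjusted p = 0.128). Without E17.5 replicate 5 or 6 or P7 replicate 6 it was called higher, with log2 fold changes of 0.31, 0.29 and 0.29, as it was without P7 replicates 1 and 6 together (0.30). Mycn stood at 88.9 to 114 CPM (median 96.3) at E17.5 and 79.1 to 116 CPM (median 105) at P7, a log2 fold change of 0.043, and Ccnd1, cyclin D1, at 95.5 to 153 CPM (median 120.4) at E17.5 and 95.2 to 144 CPM (median 114) at P7, a log2 fold change of −0.064. For the ligand-binding inhibitor Hhip the log2 fold change was −0.077, and it was called lower without E17.5 replicate 3 (−0.14) or without replicates 3 and 4 (−0.18). Ccnd2, cyclin D2, did rise, and stood at 210.4 to 259.6 CPM (median 242) at E17.5 and 369 to 470.0 CPM (median 402) at P7 (log2 fold change 0.79 ± 0.073, adjusted p = 2.83e-07), without overlap. The inhibitor Sufu rose by 1.04 and Gli2 by 0.67 on the log2 scale, while the coreceptor Cdon fell by 1.29. Hhatl, named for its likeness to an acyltransferase of the pathway, had a log2 fold change of 6.18 from a median of 0.0611 CPM. The Gli consensus TGGGTGGTC was in 0 of the 15 pathway genes in the RefSeq table, in 0.253% of all promoters and in 0.289% of gene symbols. In the Shh pathway list, Ptchd2 was not matched by symbol.

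Genes of granule neurons that leave the progenitor pool and migrate changed in both directions. Of 15 genes, 10 rose and 5 fell, with a median log2 fold change of 0.36. Neurod1, the transcription factor of the step out of proliferation, stood at 109.7 to 208 CPM (median 169) at E17.5 and 572 to 675 CPM (median 638) at P7 (log2 fold change 1.99 ± 0.15, adjusted p = 2.33e-08). Cntn2, the axonal adhesion protein TAG-1 of the inner external granule layer, stood at 163 to 201 CPM (median 185) at E17.5 and 569 to 698 CPM (median 631) at P7 (log2 fold change 1.80 ± 0.061, adjusted p = 2.62e-11). Rbfox3, the antigen NeuN of postmitotic neurons, stood at 26.8 to 35.5 CPM (median 30.5) at E17.5 and 136 to 173 CPM (median 154) at P7 (log2 fold change 2.31 ± 0.079, adjusted p = 2.62e-11). The P7 libraries lay above the E17.5 libraries throughout. The guidance protein Sema6a, which acts as granule cells begin radial migration, had a log2 fold change of 0.50. Tubb3, the neuronal tubulin, stood at 1412 to 1675 CPM (median 1472) at E17.5 and 636 to 706 CPM (median 691) at P7 (log2 fold change −1.13 ± 0.048, adjusted p = 1.43e-10). Dcx, the microtubule protein of migrating neurons, stood at 624 to 1018 CPM (median 705) at E17.5 and 454 to 483 CPM (median 468) at P7 (log2 fold change −0.68 ± 0.10, adjusted p = 2.79e-05). For Tubb2b the log2 fold change was −1.14, and in all 3 genes every P7 library lay below every E17.5 library. In the migrating granule neuron list, Astn1 (−0.75) and Jam3 (−0.17) fell. Jam3 was not called without P7 replicate 2 (−0.11).

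Genes of maturing granule neurons were mostly higher, several of them from near 0. Of 19 genes, 14 rose (73.7%), 11 of them at least 2-fold (57.9% against 9.19% of all genes), 2 fell and 3 were not called, and the median log2 fold change was 1.42. Gabra6, the GABA-A receptor subunit of mature granule neurons, went from 8 reads over all 6 E17.5 libraries to 7375 reads over the 6 P7 libraries. At P7 it stood at 22.2 to 59.4 CPM (median 35.9), while no E17.5 library exceeded 0.0889 CPM, and the fitted log2 fold change of 9.73 depends on the prior count. Cbln3, a synapse organiser of granule neurons, stood at 1.25 to 3.85 CPM (median 2.89) at E17.5 and 33.6 to 67.1 CPM (median 41.98) at P7 (log2 fold change 4.08 ± 0.25, adjusted p = 4.2e-09). Slc17a7, the vesicular glutamate transporter of mature granule neurons, stood at 1.92 to 7.25 CPM (median 4.84) at E17.5 and 56.5 to 89.2 CPM (median 63.4) at P7 (log2 fold change 3.85 ± 0.25, adjusted p = 7.32e-09). Gabrd, the subunit of extrasynaptic GABA-A receptors, stood at 0.189 to 0.531 CPM (median 0.416) at E17.5 and 15.2 to 28.4 CPM (median 20.1) at P7, a log2 fold change of 5.70. The ages did not overlap in any of these 4 genes. Fat2, a large cadherin of parallel fibres, stood at 63.6 to 112 CPM (median 103) at E17.5 and 289.6 to 448 CPM (median 353) at P7 (log2 fold change 1.93 ± 0.16, adjusted p = 7.25e-08). Cadps2, a priming factor of dense-core vesicles, stood at 119.9 to 221 CPM (median 176) at E17.5 and 495 to 579.9 CPM (median 527) at P7, a log2 fold change of 1.66. The parallel fibre synapse organiser Cbln1 rose by 0.91 and the transcription factor Etv1 by 0.86 on the log2 scale. Of the nuclear factor I genes, which drive the late granule neuron programme, Nfix rose by 2.11, Nfia by 1.53 and Nfib by 1.48. Grin2c, the NMDA receptor subunit of adult granule neurons, had not risen, and it stood at 14.4 to 18.02 CPM (median 15.1) at E17.5 and 4.86 to 13.7 CPM (median 7.08) at P7 (log2 fold change −0.91 ± 0.20, adjusted p = 0.000993), lower at P7 without overlap. In the granule neuron maturation list, Tiam1 (−0.084), Reln (0.11) and Calb2 (−0.28) were not called. Calb2 was called lower without E17.5 replicate 2 or P7 replicate 3 or 6 or P7 replicates 1 and 6 together (−0.39 to −0.33). Tiam1 was called lower without E17.5 replicate 2 or P7 replicate 3 (−0.11 to −0.10).

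The site bound by nuclear factor I holds the letters TTGGCA. They were present in 6 of the 13 maturation genes in the table (46.2%), in 14.1% of all promoters and in 16.1% of gene symbols. Of the 10 of these 13 genes that rose, 5 held the letters, and Tiam1, which was not called, held them too. The 160 bases before the start of Gabra6 and Cbln3, of the granule neuron itself, each hold 1 match, shown in capitals as TGCCAA on the strand of the gene.
Gabra6, chr11:42321073-42321232, minus strand: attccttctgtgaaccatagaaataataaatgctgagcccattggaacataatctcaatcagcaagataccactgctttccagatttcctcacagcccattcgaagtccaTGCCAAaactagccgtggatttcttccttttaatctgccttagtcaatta
Cbln3, chr14:55884257-55884416, minus strand: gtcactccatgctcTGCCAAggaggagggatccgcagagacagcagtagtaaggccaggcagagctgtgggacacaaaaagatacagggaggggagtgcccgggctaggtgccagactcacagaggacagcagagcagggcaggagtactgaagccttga
Beside these matches, Gabra6 was nearly silent at E17.5 and Cbln3 stood at a median of 2.89 CPM, and both were above 20 CPM in every P7 library.

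Purkinje cells showed 2 opposite groups of genes. Of the 19 genes of their specification and early migration, 14 fell (73.7%), 1 rose and 4 were not called, with a median log2 fold change of −0.73. Foxp2, a transcription factor of young Purkinje cells and of cerebellar nuclei, stood at 225 to 550.4 CPM (median 329.6) at E17.5 and 20.3 to 30.8 CPM (median 25.9) at P7 (log2 fold change −3.76 ± 0.19, adjusted p = 6.93e-10). Skor2, a corepressor confined to Purkinje cells in the cerebellum, stood at 18.3 to 38.4 CPM (median 27.3) at E17.5 and 4.33 to 6.17 CPM (median 5.17) at P7 (log2 fold change −2.43 ± 0.15, adjusted p = 5.84e-09). Ebf2, which sets up Purkinje cell subtypes, stood at 71.8 to 195 CPM (median 99.9) at E17.5 and 12.6 to 16.7 CPM (median 14.3) at P7 (log2 fold change −3.04 ± 0.22, adjusted p = 1.98e-08). Every P7 library was below every E17.5 library for each. Lhx5 stood at 31.3 to 67.3 CPM (median 43.1) at E17.5 and 20.7 to 30.5 CPM (median 27.2) at P7, a log2 fold change of −0.83, and Dab1, the reelin signal adaptor, at 92.4 to 179 CPM (median 119.9) at E17.5 and 37.7 to 43.1 CPM (median 40.03) at P7, a log2 fold change of −1.65. Pou4f1, of cerebellar nuclei and other hindbrain neurons, fell by 1.87 from a median of 2.42 CPM. Rora, the nuclear receptor that Purkinje cells need to survive, stood at 186 to 345 CPM (median 237) at E17.5 and 205 to 289.9 CPM (median 223) at P7 and was not called (log2 fold change −0.04). Lhx1 stood at 28.2 to 68.2 CPM (median 37.4) at E17.5 and 33.1 to 40.7 CPM (median 34.4) at P7 and was called lower without E17.5 replicate 5 alone (log2 fold change −0.31, against −0.22 with it). Bhlhe22, which rose by 1.18, is a transcription factor of several kinds of young neurons. At E17.5, replicate 4 had the highest summed level of the list at 3049 CPM and replicate 5 the lowest at 1725 CPM, while the P7 libraries lay between 1279.7 and 1429 CPM. In the Purkinje cell specification list, En2 (0.12) and Lrp8 (0.041) were not called. En2 was called higher without E17.5 replicate 4 or E17.5 replicates 3 and 4 together (0.19 to 0.23). Lhx1 was called lower without E17.5 replicate 5 (−0.31). Lrp8 was called higher without E17.5 replicate 4 or E17.5 replicates 3 and 4 together (0.12 to 0.13).

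Of the 29 genes of Purkinje cell maturation, 22 rose (75.9%), 15 of them at least 2-fold, 2 fell and 5 were not called, and the median log2 fold change was 1.19. The rise was not particular to cerebellum, since the list medians were 1.66 in cortex over 26 genes and 1.26 in hippocampus over 28 genes. Calb1, the calcium buffer calbindin used to stain Purkinje cells, stood at 91.5 to 212 CPM (median 143) at E17.5 and 482 to 569.9 CPM (median 530.1) at P7 (log2 fold change 1.89 ± 0.18, adjusted p = 2.95e-07). Pcp2, a modulator of G protein signals found in Purkinje cells, stood at 19.5 to 35.8 CPM (median 30.04) at E17.5 and 124 to 150.2 CPM (median 126) at P7 (log2 fold change 2.21 ± 0.13, adjusted p = 2.08e-09). Itpr1, their calcium channel of the endoplasmic reticulum, stood at 63.98 to 182 CPM (median 146) at E17.5 and 675 to 865 CPM (median 711) at P7 (log2 fold change 2.54 ± 0.24, adjusted p = 3.39e-07). The ages did not overlap in these genes. Ppp1r17, a phosphatase inhibitor of Purkinje cells, had a log2 fold change of 4.76 from a median of 0.334 CPM. The G protein subunit Gng13 changed by 4.61 on the log2 scale, from 0.241 CPM. Car8 stood at 220.3 to 431 CPM (median 329) at E17.5 and 511 to 585 CPM (median 545) at P7, a log2 fold change of 0.78, and the glutamate transporter Slc1a6 at 27.1 to 37.8 CPM (median 30.1) at E17.5 and 73.4 to 125 CPM (median 88.5) at P7, a log2 fold change of 1.57. The members that fell were Kitl, the ligand of the Kit receptor (−1.29), and the phospholipase Plcb4 (−0.31). In the Purkinje cell maturation list, Plcb3 (−0.0069), Dner (−0.049), Kcnma1 (0.078) and Cacna1g (0.19) were not called. Cacna1g was called higher without E17.5 replicate 4 or P7 replicate 2 or 5 (0.24 to 0.26).

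Genes of GABAergic interneurons fell in a share near that of all genes, while most genes of the rhombic lip and the cerebellar nuclei fell. Of the 22 interneuron genes tested, 4 rose (18.2% against 37.1% of all genes), 10 fell (45.5% against 38.4%) and 8 were not called. The median log2 fold change was −0.19, and no rise reached 2-fold while 6 falls did. Their summed level overlapped between ages, at 748 to 826 CPM at E17.5 and 723 to 830 CPM at P7. Pax2, the marker of interneuron precursors, stood at 4.69 to 8.97 CPM (median 5.49) at E17.5 and 2.54 to 3.89 CPM (median 3.17) at P7 (log2 fold change −0.87 ± 0.16, adjusted p = 0.000167), and Gad1, which makes GABA, at 118 to 139 CPM (median 130.0) at E17.5 and 163 to 183 CPM (median 172) at P7 (log2 fold change 0.41 ± 0.048, adjusted p = 2.71e-06). Both were without overlap, Pax2 lower and Gad1 higher at P7. The progenitor factor Ptf1a was low at both ages and was not called (log2 fold change −0.15). The neuropeptide Sst stood at 26.5 to 36.3 CPM (median 33.4) at E17.5 and 2.104 to 6.58 CPM (median 3.51) at P7 (log2 fold change −3.12 ± 0.22, adjusted p = 1.41e-08). Its P7 libraries were all below those of E17.5. The neuropeptide Npy fell by 1.76 and the sorting receptor Sorcs3 by 1.65 on the log2 scale. In the GABAergic interneuron lineage list, Neurog1 (0.82) and Lbx1 (0.99) rose and Gata3 did not pass the filter on low counts.

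Of the 13 genes of the rhombic lip and cerebellar nuclei, 10 fell (76.9%), 9 of them at least 2-fold, 1 rose and 2 were not called, with a median log2 fold change of −1.72. Lmx1a, a transcription factor of the rhombic lip and roof plate, stood at 24.8 to 34.9 CPM (median 27.7) at E17.5 and 1.01 to 3.67 CPM (median 2.797) at P7 (log2 fold change −3.50 ± 0.23, adjusted p = 7.35e-09). Lhx9, of early nuclear neurons, stood at 14.1 to 26.2 CPM (median 18.8) at E17.5 and 1.07 to 2.17 CPM (median 1.69) at P7 (log2 fold change −3.53 ± 0.20, adjusted p = 2.1e-09). Meis2, also of nuclear neurons, stood at 47.8 to 95.0001 CPM (median 77.7) at E17.5 and 0.537 to 16.3 CPM (median 6.44) at P7 (log2 fold change −3.46 ± 0.43, adjusted p = 5.1e-06). None of them overlapped between ages. Eomes, which marks unipolar brush cells after they leave the rhombic lip, stood at 22.1 to 77.8 CPM (median 64.8) at E17.5 and 19.6 to 36.6 CPM (median 27.7) at P7 (log2 fold change −1.05 ± 0.27, adjusted p = 0.0033), and its ages overlapped. The log2 fold change was −1.59 for Tbr1, of medial nuclear neurons, −0.41 for the Wnt carrier Wls and −3.48 for Lmx1b, whose median was below 1 CPM at both ages. Slc17a6, the glutamate transporter of nuclear and young granule neurons, was the member that rose (0.27) at an adjusted p of 0.0938. In the rhombic lip and cerebellar nuclei list, Olig3 (−0.51) was not called. Olig3 was called lower without E17.5 replicate 1 or P7 replicate 3 or 4 (−0.65 to −0.59). Slc17a6 was not called without E17.5 replicate 2, 3, 4 or 6 or P7 replicate 3, 4, 5 or 6 or E17.5 replicates 3 and 4 together or P7 replicates 1 and 6 together (0.15 to 0.28).

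Most genes of Bergmann glia and astrocytes rose. Of 30 genes, 19 rose (63.3%), 11 of them at least 2-fold, 6 fell and 5 were not called, with a median log2 fold change of 0.84. Gfap, the intermediate filament of astrocytes, stood at 0.2203 to 6.25 CPM (median 3.56) at E17.5 and 301 to 481 CPM (median 424) at P7 (log2 fold change 7.06 ± 0.41, adjusted p = 2.65e-09). Aqp4, the water channel of astrocyte endfeet, stood at 7.8997 to 62.6 CPM (median 31.6) at E17.5 and 654 to 946 CPM (median 848) at P7 (log2 fold change 4.66 ± 0.39, adjusted p = 9.6e-08). Gdf10, a growth factor of Bergmann glia, stood at 55.1 to 101 CPM (median 73.2) at E17.5 and 139 to 155 CPM (median 142) at P7 (log2 fold change 0.96 ± 0.11, adjusted p = 3.25e-06). Slc1a3, the glutamate transporter GLAST of Bergmann glia, stood at 484 to 840.1 CPM (median 637) at E17.5 and 945 to 1099 CPM (median 1005) at P7 (log2 fold change 0.68 ± 0.11, adjusted p = 8.68e-05). The ages did not overlap in these 4 genes, in which the rise of Slc1a3 was the smallest. Of low genes at E17.5, Agt, the angiotensin precursor, changed by 5.98, the calcium binding protein S100b by 3.69 and the connexin Gjb6 by 4.09 on the log2 scale, also without overlap. Fabp7, a lipid carrier of radial glia, rose by 0.22 and the transporter Slc1a2 by 0.32, with overlap. Nes, the filament nestin of neural stem cells, stood at 226 to 303 CPM (median 273) at E17.5 and 49.9 to 69.8 CPM (median 54.7) at P7 (log2 fold change −2.26 ± 0.10, adjusted p = 1.46e-10), and Vim, vimentin, at 581 to 726 CPM (median 626) at E17.5 and 264 to 372 CPM (median 316) at P7 (log2 fold change −1.02 ± 0.084, adjusted p = 7.92e-08). In both genes all P7 libraries lay below those of E17.5. In the Bergmann glia and astrocytes list, Aldh1l1 (−0.033), Fgfr3 (0.081), Id4 (−0.10), Slc6a11 (−0.14) and Ptprz1 (−0.20) were not called. Aldh1l1 was called lower without E17.5 replicates 3 and 4 together (−0.15). Id4 was called lower without E17.5 replicate 2 or 5 (−0.14 to −0.12). Ptprz1 was called lower without E17.5 replicate 6 or P7 replicate 6 or P7 replicates 1 and 6 together (−0.27 to −0.21).

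Most oligodendrocyte genes rose. Of 14 precursor genes, 10 rose (71.4%), 1 fell and 3 were not called, with a median log2 fold change of 1.01, and all 19 myelin genes tested rose, 18 of them at least 2-fold, with a median of 3.65. Pdgfra, the growth factor receptor of precursors, stood at 43.7 to 101 CPM (median 83.7) at E17.5 and 148 to 197 CPM (median 166) at P7 (log2 fold change 1.12 ± 0.18, adjusted p = 6.38e-05). Sox10, the transcription factor of the whole lineage, stood at 2.896 to 7.84 CPM (median 4.63) at E17.5 and 16.9 to 30.8 CPM (median 28.4) at P7 (log2 fold change 2.45 ± 0.21, adjusted p = 1.11e-07). Gpr17, of the step toward differentiation, stood at 7.81 to 27.6 CPM (median 14.6) at E17.5 and 80.8 to 199 CPM (median 159) at P7 (log2 fold change 3.25 ± 0.29, adjusted p = 1.75e-07). Enpp6, of newly formed oligodendrocytes, stood at 0.283 to 1.38 CPM (median 0.419) at E17.5 and 21.95 to 54.8 CPM (median 46.3) at P7 (log2 fold change 6.31 ± 0.32, adjusted p = 6.94e-10). None of them overlapped. Olig2, the factor that specifies the lineage, stood at 19.4 to 27.1 CPM (median 22.2) at E17.5 and 17.1 to 31.4 CPM (median 26.2) at P7 and was called only without P7 replicate 2 (log2 fold change 0.27, against 0.16 with it). Bmp4 rose by 3.58 from a median of 0.682 CPM. In the oligodendrocyte precursor list, Sox6 (−0.19) fell and Olig1 (0.061) and Ptprz1 (−0.20) were not called. Sox6 was not called without E17.5 replicate 1, 4, 5 or 6 or P7 replicate 1, 2, 3, 4 or 5 or E17.5 replicates 3 and 4 together (−0.21 to −0.12).

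Among the myelin genes, Mbp, myelin basic protein, stood at 40.5 to 46.2 CPM (median 43.6) at E17.5 and 188 to 897 CPM (median 569) at P7 (log2 fold change 3.65 ± 0.28, adjusted p = 3.65e-08). Mag, an adhesion protein of the inner myelin layer, stood at 1.38 to 2.38 CPM (median 1.72) at E17.5 and 16.5 to 106 CPM (median 78.8) at P7, a log2 fold change of 5.27. Every P7 library was above every E17.5 library, and replicate 2 was the lowest P7 library for both genes. The P7 mice varied widely, with summed levels of the list from 613 CPM in replicate 2 to 2688 CPM in replicate 6, against 116 to 145 CPM at E17.5. Cnp, a phosphodiesterase of myelin, changed by 3.51 and the tight junction protein Cldn11 by 5.56 on the log2 scale. Mobp had 4 reads over all 6 E17.5 libraries and stood at 10.4 to 179 CPM (median 101) at P7, and Mog, a protein of the outer myelin surface, stood at 1.52 to 22.5 CPM (median 12.7) at P7 after no more than 0.156 CPM at E17.5. Their fitted log2 fold changes, 11.94 and 6.95, and that of Ermn, a late cytoskeletal protein (6.64), depend on the prior count. In the myelin list, Opalin did not pass the filter on low counts.

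**Figure D3:**
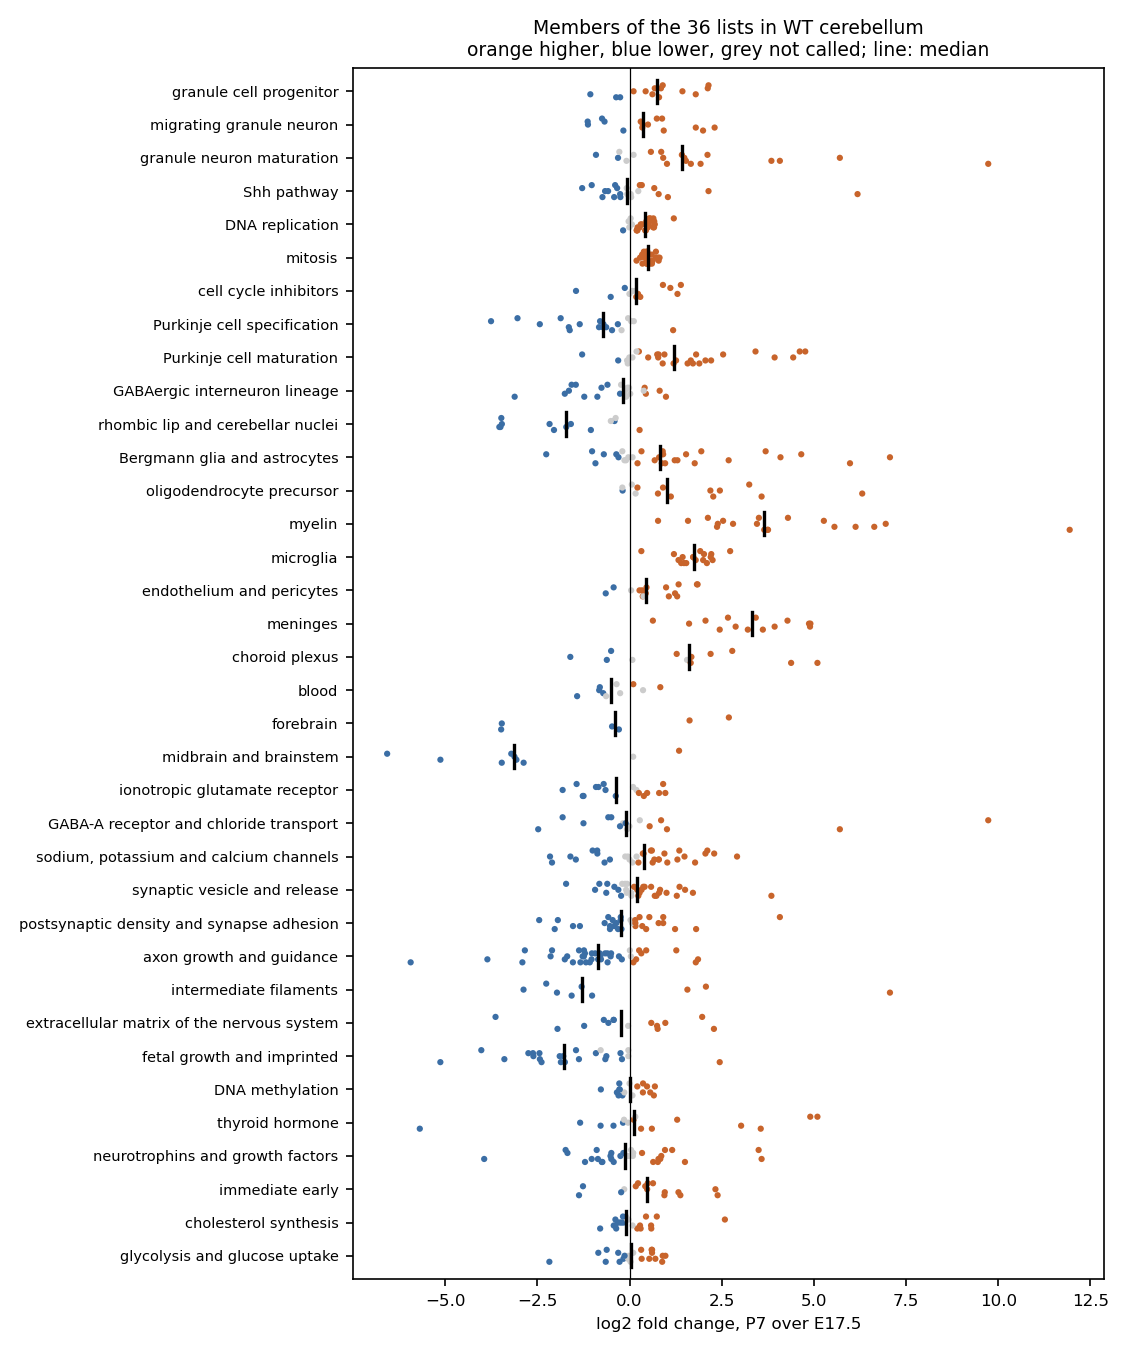
Log2 fold change, P7 over E17.5, of each tested member of the 36 gene lists in WT cerebellum, with members called higher in orange, called lower in blue and not called in grey, and a bar at the median of each list. Mitosis, myelin, microglia and meninges genes lie on the right of 0 throughout, and the medians of the rhombic lip, intermediate filament, axon growth and fetal growth lists lie on the left.

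Markers of microglia, vessels, meninges, choroid plexus and blood were measured too, and are given with the ranges of their sums. All 18 microglia genes rose, 17 of them without overlap and 17 at least 2-fold, with a median log2 fold change of 1.76 and sums of 86.7 to 107 CPM at E17.5 and 264 to 349.8 CPM at P7. Csf1r, the receptor microglia need to survive, stood at 11.04 to 13.8 CPM (median 12.2) at E17.5 and 37.3 to 45.5 CPM (median 40.4) at P7 (log2 fold change 1.72 ± 0.075, adjusted p = 1.71e-10). C1qa, which starts the complement cascade, stood at 3.72 to 4.77 CPM (median 4.28) at E17.5 and 18.02 to 22.3 CPM (median 19.6) at P7 (log2 fold change 2.22 ± 0.083, adjusted p = 4.88e-11). Neither overlapped between ages. On the log2 scale the change was 1.48 for the chemokine receptor Cx3cr1, 1.33 for the purine receptor P2ry12 and 1.92 for Tmem119, a marker of mature microglia. It was 2.25 for C1qb, 2.20 for C1qc and 2.73 for the signal adaptor Tyrobp.

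Of the 16 genes of endothelium and pericytes, 12 rose (75%), 2 fell and 2 were not called, with a median log2 fold change of 0.45. Cldn5, the tight junction protein of brain endothelium, stood at 35.8 to 44.8 CPM (median 42.5) at E17.5 and 78.4 to 96.2 CPM (median 87.1) at P7 (log2 fold change 1.06 ± 0.063, adjusted p = 2.75e-09), without overlap. As log2 fold changes the values were 0.44 for the endothelial Pecam1, 0.36 for the pericyte receptor Pdgfrb, 1.84 for vitronectin (Vtn), 1.83 for the transporter Slco1a4 and 1.33 for Ly6c1. Flt1, a receptor for VEGF, changed by 0.34, and without E17.5 replicates 3 and 4 by 0.18, when it was not called. All 14 meninges genes rose without overlap, 13 of them at least 2-fold, with a median of 3.31 and sums of 95.8 to 235 CPM at E17.5 and 771 to 1309 CPM at P7. Col1a2, a chain of fibrillar collagen, stood at 7.93 to 37.9 CPM (median 15.5) at E17.5 and 107 to 166 CPM (median 128) at P7 (log2 fold change 2.88 ± 0.29, adjusted p = 6.5e-07). Dcn, the proteoglycan decorin of fibroblasts, stood at 0.126 to 4.57 CPM (median 0.696) at E17.5 and 40.1 to 61.1 CPM (median 43.3) at P7 (log2 fold change 4.90 ± 0.48, adjusted p = 4.3e-07). All P7 libraries were above all E17.5 libraries in both. The log2 fold change was 3.21 for Col1a1, 4.28 for lumican (Lum), 4.89 for prostaglandin D synthase (Ptgds), 4.87 for the anion transporter Slc22a6 and 3.93 for the GABA transporter Slc6a13. How much of the change in any other gene came with meninges, microglia or vessels was not tested. In the endothelium and pericytes list, Slc2a1 (−0.65) and Abcc9 (−0.43) fell and Kcnj8 (0.042) and Plvap (0.38) were not called. Plvap was called higher without E17.5 replicate 4 or P7 replicate 4 or 5 or E17.5 replicates 3 and 4 together (0.44 to 0.48).

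Choroid plexus markers were high in single libraries. Of the 12 markers tested 7 rose, 3 fell and 2 were not called, with a median log2 fold change of 1.61, but the median summed level was 213 CPM at E17.5 and 206 CPM at P7, and the P7 range of 198 to 2056 CPM was set by replicates 1 and 6. Ttr, the thyroid hormone carrier that the choroid plexus secretes, stood at 1.42 to 46.004 CPM (median 2.197) at E17.5 and 0.119 to 1568 CPM (median 2.75) at P7 (log2 fold change 5.09 ± 1.81, adjusted p = 0.0213). P7 replicates 6 and 1 were its highest libraries, followed by E17.5 replicate 5, and the other libraries of both ages overlapped. Without replicates 1 and 6 its log2 fold change was −2.54 (adjusted p = 0.0801), and without replicate 6 alone 2.98. Folr1, a folate receptor, was not called at a log2 fold change of 1.56, and it was called lower without both libraries (−1.10). Leaving out 1 of the P7 replicates 2 to 5 or E17.5 replicate 5 brought Folr1 past the threshold upward, at 1.76 to 1.84. Kl, the klotho protein, changed by 1.68 with all libraries, by 0.77 without P7 replicate 6 and by 0.42 without replicates 1 and 6, when it was not called. Clic6 changed by 2.78, and by 1.52 without both. On the log2 scale the change was 4.38 for the potassium channel Kcnj13 and 1.66 for Enpp2, which oligodendrocytes make as well. Without both libraries 3 of the 12 markers were called higher and 6 lower. In the choroid plexus list, Prlr (−1.61), Otx2 (−0.50) and Igfbp2 (−0.62) fell, Sostdc1 (0.076) was not called and Kcne2 and Slc4a5 did not pass the filter on low counts. Otx2 was not called without E17.5 replicate 1, 2, 5 or 6 or P7 replicate 2, 4 or 5 (−0.50 to −0.36) and still lower without E17.5 replicates 3 and 4 together (−0.75). Sostdc1 was called lower without P7 replicate 6 or P7 replicates 1 and 6 together (−2.84 to −1.64).

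Blood markers went with E17.5 replicates 3 and 4. Of 10 tested, 2 rose, or 4 without these libraries, 4 fell and 4 were not called, with a median log2 fold change of −0.49, and the sum was 1643 CPM in replicate 4 and 1426 CPM in replicate 3, against 776 to 970.1 CPM in the other E17.5 libraries and 672 to 844 CPM at P7. The adult globin genes all fell, with log2 fold changes of −1.42 for Hbb-bt, −0.71 for Hbb-bs, −0.82 for Hba-a1 and −0.81 for Hba-a2. Without replicates 3 and 4 these were −0.91, −0.41, −0.47 and −0.41, in the same order and all still called. The embryonic globin genes Hba-x, Hbb-bh1 and Hbb-y did not pass the filter. The globin copies are nearly identical and share reads, so the values of single copies are uncertain. Alas2, of heme synthesis in red cells, was not called at −0.35, and was called lower without E17.5 replicate 5 or 6 (−0.45 and −0.42). The transferrin receptor Tfrc, which brain endothelium and neurons use as well, rose by 0.83. In the blood list, Bpgm (0.10) rose, Slc4a1 (−0.26) was not called, Ahsp was not matched by symbol and Epb42 and Rhag did not pass the filter on low counts. Bpgm was not called without E17.5 replicate 2 (0.087). Slc4a1 was called higher without E17.5 replicates 3 and 4 together (0.67).

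Most markers of other brain regions did not pass the filter on low counts. Of the 21 midbrain and brainstem genes, 12 did not pass the filter, Hoxb5 and Tph2 among them, and of the 9 that did 7 fell, 1 rose and 1 was not called, with a median log2 fold change of −3.12. Their sum lay between 12.4 and 35.5 CPM at E17.5 and between 3.97 and 9.32 CPM at P7. Isl1, of motor neurons, stood at 1.59 to 4.596 CPM (median 2.47) at E17.5 and 0 to 0.0721 CPM (median 0.0149) at P7. Pax7, of the dorsal midbrain, stood at 1.34 to 2.83 CPM (median 2.08) at E17.5 and 0 to 0.0958 CPM (median 0.0531) at P7. Sox14, of midbrain and brainstem interneurons, stood at 3.88 to 6.89 CPM (median 5.26) at E17.5 and 0 to 0.649 CPM (median 0.554) at P7. The E17.5 libraries were above all P7 libraries in these 3 genes, with log2 fold changes of −6.57, −5.13 and −3.47. The hindbrain genes Hoxb3 and Hoxa2 fell by 2.87 and 3.07 with overlap between ages, and without P7 replicate 6, the P7 library with the highest sum, Hoxb3 fell by 5.17 (by 5.42 without replicates 1 and 6). Of the 14 forebrain genes 6 passed the filter, with sums of 70.4 to 75.5 CPM at E17.5 and 45.2 to 52.0 CPM at P7. Of these 6 genes 2 rose and 4 fell, with a median log2 fold change of −0.38. Among these, Bcl11b, which Purkinje cells also express, stood at 22.7 to 32.3 CPM (median 25.8) at E17.5 and 1.76 to 3.67 CPM (median 2.196) at P7 (log2 fold change −3.47 ± 0.16, adjusted p = 2.52e-10). Its ages did not overlap. Drd1 changed by −3.48, Neurod6 by −0.29 and Ppp1r1b by 2.69 on the log2 scale. The part of these tissues in any other change was not tested. In the midbrain and brainstem list, Gata2 (1.34) rose and Tal1 (0.10) was not called. In the forebrain list, Lhx6 (1.63) rose and Emx1, Emx2, Fezf2, Dlx1, Dlx2, Dlx5 and Nkx2-1 did not pass the filter on low counts.

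**Figure D4:**
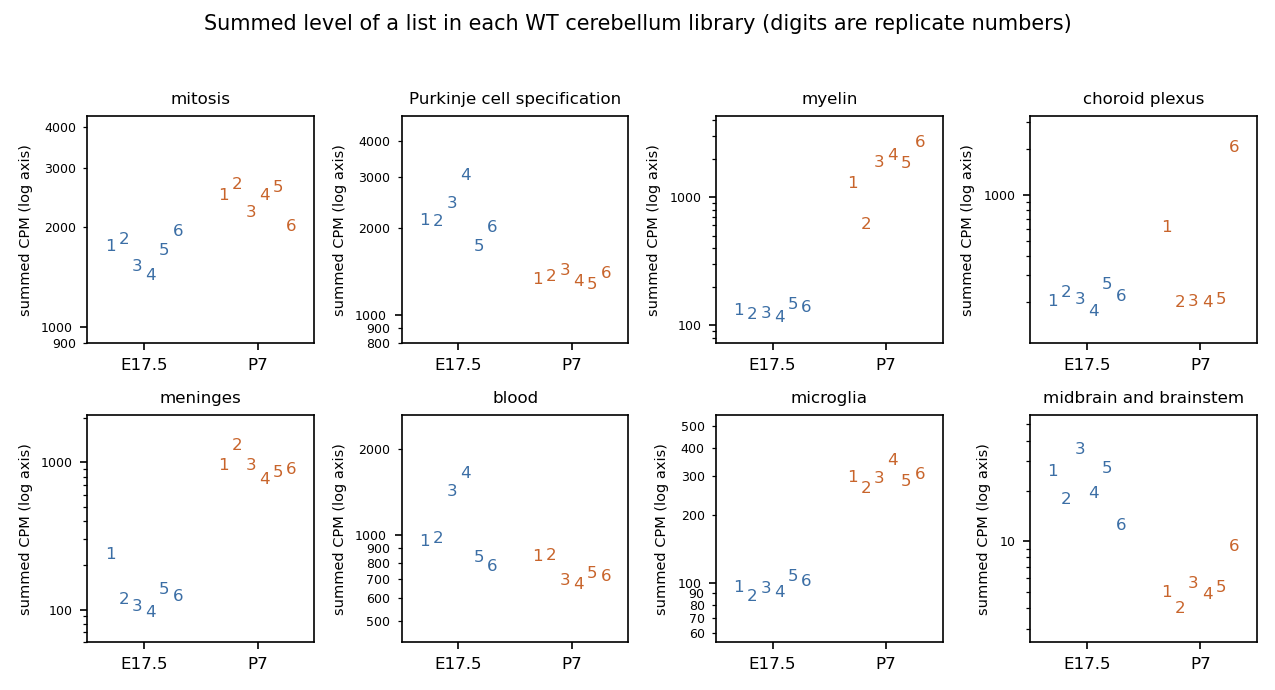
Summed CPM of 8 gene lists in each WT cerebellum library on log axes, with digits for the replicate numbers, blue for E17.5 and orange for P7. P7 replicates 1 and 6 stand above the other libraries in choroid plexus markers, E17.5 replicates 3 and 4 in blood markers, and the ages are separate in mitosis, Purkinje cell specification, myelin, meninges, microglia and midbrain and brainstem genes.

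Receptor genes changed in both directions. Of 17 ionotropic glutamate receptor genes tested, 6 rose and 9 fell (35.3% and 52.9%), with a median log2 fold change of −0.37. Grin2a, the NMDA receptor subunit of maturing synapses, stood at 14.3 to 19.6 CPM (median 16.02) at E17.5 and 21.03 to 44.9 CPM (median 30.6) at P7 (log2 fold change 0.97 ± 0.15, adjusted p = 3.58e-05). Grin2d, a subunit of young neurons, stood at 13.8 to 19.997 CPM (median 15.2) at E17.5 and 4.21 to 8.52 CPM (median 5.46) at P7 (log2 fold change −1.44 ± 0.14, adjusted p = 5.62e-07). Grik3, a kainate receptor subunit, stood at 147 to 179 CPM (median 167) at E17.5 and 39.8 to 51.96 CPM (median 47.1) at P7 (log2 fold change −1.82 ± 0.068, adjusted p = 5.08e-11). The ages did not overlap, with Grin2a higher and the others lower at P7. The obligate subunit Grin1 changed by 0.39, Grin3a by −1.27 and Grik1 by −1.25. Grin2b, the subunit of immature synapses, was not called (0.19), except higher without P7 replicate 4 (0.27). In the ionotropic glutamate receptor list, Gria3 (0.095) was not called and Grin3b did not pass the filter on low counts. Gria3 was called higher without E17.5 replicate 4 or E17.5 replicates 3 and 4 together (0.18 to 0.23).

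Of the 16 genes of GABA-A receptors and chloride transport, 5 rose, 7 fell and 4 were not called, with a median log2 fold change of −0.087. Besides Gabra6 and Gabrd, the genes that rose included Gabra4 and Slc12a2. Gabra3, an alpha subunit of young neurons, stood at 35.04 to 48.9 CPM (median 43.8) at E17.5 and 13.9 to 20.3 CPM (median 18.6) at P7 (log2 fold change −1.25 ± 0.09, adjusted p = 2.05e-08). All its P7 libraries were below those of E17.5. Gabra5 changed by −1.82, the theta subunit gene Gabrq by −2.48 and Gabra4 by 0.85 on the log2 scale, and Gabra2 stayed uncalled at −0.0061. Of the chloride carriers, the importer Slc12a2 rose by 0.54, and the exporter Slc12a5, which rises as GABA becomes inhibitory, stood at 110.2 to 154 CPM (median 126) at E17.5 and 84.4 to 139.5 CPM (median 108) at P7 and was not called (log2 fold change −0.18). Slc12a5 was called lower without P7 replicate 3 or 6 (−0.24 and −0.23). In the GABA-A receptor and chloride transport list, Gabrb1 (−0.067) and Gabrg1 (0.28) were not called and Gabre, Gabrp, Gabrr1 and Gabrr2 did not pass the filter on low counts. Gabrg1 was called higher without E17.5 replicate 5 or P7 replicate 2 (0.40 to 0.41).

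Of 33 sodium, potassium and calcium channel genes, 19 rose (57.6%), 9 fell and 5 were not called, with a median log2 fold change of 0.38. Scn3a, the sodium channel of embryonic neurons, stood at 109 to 162 CPM (median 142) at E17.5 and 22.7 to 38.8 CPM (median 32.4) at P7 (log2 fold change −2.16 ± 0.12, adjusted p = 1.74e-09). Kcna1, a potassium channel of axons, stood at 7.14 to 10.5 CPM (median 8.32) at E17.5 and 36.3 to 52.2 CPM (median 39.3) at P7 (log2 fold change 2.29 ± 0.12, adjusted p = 1.16e-09). The ages did not overlap in either, with Scn3a lower and Kcna1 higher at P7. Among the sodium channels the log2 fold change was 0.63 for Scn1a, 0.38 for Scn8a and −0.53 for Scn2a, and it was 2.91 for the beta subunit gene Scn4b. Among the potassium channels it was 0.61 for Kcna2, −2.10 for Kcna4 and −0.0012 for the fast channel gene Kcnc1, which was not called. In the sodium, potassium and calcium channels list, Kcnk9 (−0.12), Kcnma1 (0.078), Hcn2 (−0.046) and Cacna1g (0.19) were not called and Scn2a1 was not matched by symbol. Kcnk9 was called lower without E17.5 replicates 3 and 4 together (−0.28).

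Of 33 genes of synaptic vesicles and release, 18 rose (54.5%), 8 fell and 7 were not called, with a median log2 fold change of 0.21. Snap25, of the fusion complex, stood at 93.5 to 144 CPM (median 116) at E17.5 and 233 to 316 CPM (median 286) at P7 (log2 fold change 1.28 ± 0.10, adjusted p = 3.91e-08). Syp, the vesicle protein synaptophysin, stood at 140.3 to 191 CPM (median 167) at E17.5 and 241 to 292 CPM (median 269) at P7 (log2 fold change 0.68 ± 0.073, adjusted p = 1.19e-06). Syt1, the calcium sensor of release in most forebrain neurons, stood at 319 to 389 CPM (median 341) at E17.5 and 205 to 246 CPM (median 223) at P7 (log2 fold change −0.63 ± 0.061, adjusted p = 3.98e-07). The ages did not overlap, with Syt1 alone of the 3 lower at P7. Syt2, the sensor of fast hindbrain synapses, rose by 1.72, the vesicle protein Sv2b by 1.51, and the fusion proteins Vamp1 and Vamp2 by 0.83 and 0.37 on the log2 scale. Syn1 was not called at −0.20, and was called lower without E17.5 replicate 2 (−0.25) or P7 replicate 6 (−0.28), or without P7 replicates 1 and 6 together (−0.24).

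Of 31 genes of the postsynaptic density and synapse adhesion, 13 rose, 16 fell and 2 were not called, with a median log2 fold change of −0.22. Besides Cbln3, the largest changes without overlap were falls of 2 genes of the same family, Cbln2 (−2.45) and Cbln4 (−2.03). Cbln2, a synapse organiser of other brain regions, stood at 22.4 to 48.1 CPM (median 30.7) at E17.5 and 3.28 to 10.2 CPM (median 5.59) at P7. As log2 fold changes the values were −0.22 for the scaffold Dlg4, −0.42 for Shank1 and 0.79 for Shank2, and −0.53 and 0.34 for the kinase subunits Camk2a and Camk2b. In the postsynaptic density and synapse adhesion list, Homer1 (0.026) and Dlg2 (0.066) were not called.

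Most genes of axon growth and guidance fell. Of 41 genes, 31 fell (75.6% against 38.4% of all genes), 19 of them at least 2-fold and 28 without overlap, 8 rose and 2 were not called, with a median log2 fold change of −0.85. Gap43, a protein of growth cones, stood at 507 to 586 CPM (median 529) at E17.5 and 221 to 248 CPM (median 235) at P7 (log2 fold change −1.18 ± 0.046, adjusted p = 7.15e-11). Robo3, the receptor that lets axons cross the midline, stood at 7.35 to 30.9 CPM (median 13.2) at E17.5 and 0.134 to 0.429 CPM (median 0.248) at P7 (log2 fold change −5.94 ± 0.45, adjusted p = 3.38e-08). Slit1, a repellent that Robo receptors bind, stood at 35.5 to 60.2 CPM (median 50.3) at E17.5 and 1.43 to 5.84 CPM (median 3.28) at P7 (log2 fold change −3.86 ± 0.22, adjusted p = 2.47e-09). In each, every P7 library lay below every E17.5 library. Epha4, a repulsive ephrin receptor, stood at 239 to 386 CPM (median 312) at E17.5 and 37.8 to 49.5 CPM (median 44.5) at P7 (log2 fold change −2.84 ± 0.11, adjusted p = 8.6e-11), and Epha5, of the same family, at 105 to 143 CPM (median 127) at E17.5 and 11.7 to 24.7 CPM (median 15.9) at P7, a log2 fold change of −2.91. The netrin receptor Dcc fell by 0.79, Robo1 by 1.02 and Robo2 by 1.24 on the log2 scale. Stmn2, a microtubule regulator of growth cones, was among those that rose (0.18). In the axon growth and guidance list, Sema6d (0.035) and Efnb2 (0.0077) were not called.

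The 9 intermediate filament genes all changed, 6 down and 3 up, each at least 2-fold, with a median log2 fold change of −1.3002. Nefl, the light chain of neurofilaments, stood at 780.2 to 874 CPM (median 837) at E17.5 and 193 to 368 CPM (median 283) at P7 (log2 fold change −1.57 ± 0.11, adjusted p = 2.15e-08). Nefm, the medium chain, stood at 217 to 239.8 CPM (median 232) at E17.5 and 34.8 to 92.9 CPM (median 57.5) at P7 (log2 fold change −1.97 ± 0.18, adjusted p = 2.14e-07). Nefh, the heavy chain of mature axons, went the other way at 6.58 to 22.7 CPM (median 11.3) at E17.5 and 17.99 to 65.4 CPM (median 38.2) at P7 (log2 fold change 1.57 ± 0.31, adjusted p = 0.000415). Nefl and Nefm did not overlap between ages, and Nefh did. Internexin (Ina) fell by 1.3002 and peripherin (Prph), of neurons with axons that leave the brain, by 2.88, while Sync rose by 2.07 from under 1 CPM in the median library of E17.5.

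Of the 14 genes of the neural extracellular matrix tested, 6 rose, 7 fell and 1 was not called, with a median log2 fold change of −0.23. Has2, which makes hyaluronan in embryonic tissue, stood at 30.5 to 66.4 CPM (median 42.6) at E17.5 and 2.75 to 4.74 CPM (median 3.69) at P7 (log2 fold change −3.64 ± 0.19, adjusted p = 9.16e-10). Its P7 libraries were all below those of E17.5. Has3 changed by −1.95 and the proteoglycan Cspg5 by −1.23. Among the lecticans the log2 fold change was 0.75 for Bcan, −0.58 for Ncan and −0.43 for Vcan, and among the link proteins 1.97 for Hapln1 and 2.29 for Hapln4, of perineuronal nets. Acan, aggrecan, changed by 0.76 at levels near 1 CPM, and its call was lost without any 1 of E17.5 replicates 1, 2, 3 or 4 or of P7 replicates 3, 5 or 6, where the log2 fold change was between 0.49 and 0.76. It was also lost without E17.5 replicates 3 and 4 (0.54) and without P7 replicates 1 and 6 (0.43). In the extracellular matrix of the nervous system list, Hapln3 (−0.038) was not called and Hapln2 and Has1 did not pass the filter on low counts.

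Most genes of fetal growth and imprinting fell. Of 24 genes, 20 fell (83.3%), 15 of them at least 2-fold, 1 rose and 3 were not called, with a median log2 fold change of −1.78. Igf2bp1, an RNA-binding protein of embryonic tissue, stood at 33.03 to 54.2 CPM (median 42.5) at E17.5 and 0.401 to 2.09 CPM (median 0.968) at P7 (log2 fold change −5.13 ± 0.26, adjusted p = 7.14e-10). Lin28b, which blocks the maturation of let-7 microRNAs, stood at 15.2 to 23.7 CPM (median 19.5) at E17.5 and 2.36 to 3.31 CPM (median 2.84) at P7 (log2 fold change −2.74 ± 0.12, adjusted p = 1.26e-10). Hmga2, a chromatin protein of young stem cells, stood at 6.69 to 15.6 CPM (median 9.63) at E17.5 and 0.368 to 0.817 CPM (median 0.611) at P7 (log2 fold change −4.02 ± 0.23, adjusted p = 2.39e-09). All P7 libraries were below those of E17.5. Igf2bp2 fell by 3.40 and Igf2bp3 by 1.89. Meg3, a maternally expressed noncoding RNA, stood at 522 to 1435 CPM (median 1069) at E17.5 and 131 to 312 CPM (median 151) at P7 (log2 fold change −2.43 ± 0.27, adjusted p = 1.65e-06), also without overlap. Its paternally expressed neighbour Dlk1 fell by 2.61, Plagl1 by 0.91, Magel2 by 2.44 and Trim71 by 2.62. Igf2, the growth factor that meninges and vessels supply in the brain, rose and stood at 17.9 to 35.5 CPM (median 20.8) at E17.5 and 108 to 153 CPM (median 125) at P7 (log2 fold change 2.44 ± 0.16, adjusted p = 6.24e-09). Igf2 is itself 1 of the 14 meninges markers above, all of which rose, and the part of meninges in its rise was not tested. H19, from the same imprinted domain, fell by 0.66, a call that was lost without E17.5 replicate 1 (−0.49), P7 replicate 5 (−0.60), P7 replicate 6 (−0.59) or P7 replicates 1 and 6 together (−0.59), and without P7 replicate 2 it fell by 0.99. Mest did not overlap between ages, yet was not called (−0.78, adjusted p = 0.202), and without P7 replicate 2 it was called lower (−0.50). In the fetal growth and imprinted list, Hmga1b (−0.033) and Snrpn (−0.033) were not called.

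DNA methylation genes changed little, with 7 of 17 higher, 7 lower, 3 not called and no 2-fold change, with a median log2 fold change of −0.0011. The log2 fold change was −0.30 for the maintenance enzyme Dnmt1, −0.34 and −0.28 for the enzymes of new methylation Dnmt3a and Dnmt3b, and 0.21 for the demethylase Tet1. For Uhrf2 it was −0.78, for Gadd45a 0.69 and for Gadd45g 0.66. In the DNA methylation list, Mbd3 (−0.0011) and Mbd4 (0.078) were not called. Mbd4 was called higher without P7 replicates 1 and 6 together (0.15).

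Thyroid hormone drives much of early postnatal cerebellar maturation, and the genes of its list changed in both directions. Of the 16 genes, which include Ttr, 8 rose (50%), 5 fell (31.2%) and 3 were not called. The shares over all genes were 37.1% higher and 38.4% lower. The median log2 fold change was 0.13, and without P7 replicates 1 and 6 the list had 6 higher. Klf9, a direct target of the hormone receptor, stood at 5.97 to 10.4 CPM (median 8.85) at E17.5 and 90.1 to 117 CPM (median 96.7) at P7 (log2 fold change 3.56 ± 0.13, adjusted p = 4.88e-11). Hr, another target, stood at 1.27 to 2.02 CPM (median 1.58) at E17.5 and 8.71 to 19.1 CPM (median 12.3) at P7 (log2 fold change 3.03 ± 0.19, adjusted p = 5.02e-09). Dio2, which makes the active hormone, stood at 0.252 to 0.733 CPM (median 0.564) at E17.5 and 13.1 to 18.1 CPM (median 15.6) at P7 (log2 fold change 4.90 ± 0.18, adjusted p = 3.36e-11). Dio3, which inactivates it, stood at 2.56 to 4.78 CPM (median 3.49) at E17.5 and 0.0334 to 0.09196 CPM (median 0.0661) at P7 (log2 fold change −5.69 ± 0.25, adjusted p = 1.74e-10). No age groups overlapped in these 4 genes, with Dio3 alone lower at P7. The receptor genes Thra and Thrb changed little, with log2 fold changes of −0.18 and −0.15, and Thrb was called only without P7 replicate 4 (−0.21). Among the hormone transporters the log2 fold change was 1.29 for Slco1c1 and 0.60 for Slc16a10, and for the hormone-binding protein Crym it was −1.34. In the thyroid hormone list, Nrgn (−0.44) fell and Rora (−0.04) was not called. Nrgn was not called without E17.5 replicate 1 or P7 replicate 5 (−0.38 to −0.35).

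Of the 32 neurotrophins and growth factors tested, 11 rose, 15 fell and 6 were not called, with a median log2 fold change of −0.11. Bdnf, which acts on granule neurons, stood at 3.05 to 5.55 CPM (median 3.704) at E17.5 and 1.104 to 2.07 CPM (median 1.75) at P7 (log2 fold change −1.21 ± 0.17, adjusted p = 1.91e-05). Ntf3, made by maturing granule neurons, stood at 6.39 to 10.5 CPM (median 7.92) at E17.5 and 11.6 to 17.7 CPM (median 13.9) at P7 (log2 fold change 0.83 ± 0.13, adjusted p = 4.14e-05). Neither overlapped between ages. The receptor genes had log2 fold changes of −0.49 for Ntrk3 and 0.089 for Ntrk2, which was called higher only without E17.5 replicate 6 (0.14) or P7 replicate 2 (0.14). Cxcl12, the meningeal chemokine that holds progenitors at the surface, stood at 9.06 to 27.3 CPM (median 17.6) at E17.5 and 47.98 to 53.1 CPM (median 50.99) at P7 (log2 fold change 1.502 ± 0.24, adjusted p = 5.64e-05), and its receptor Cxcr4 at 43.8 to 57.9 CPM (median 50.8) at E17.5 and 29.2 to 42.2 CPM (median 37.2) at P7 (log2 fold change −0.49 ± 0.095, adjusted p = 0.000297). Ligand and receptor moved in opposite directions, both without overlap. Igf1 changed by 0.96, Fgf1 by 3.50 and Gdnf by −3.94 on the log2 scale.

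Of the 16 immediate early genes tested, which neurons switch on with activity, 12 rose (75%), 3 fell and 1 was not called, with a median log2 fold change of 0.48. Fos stood at 0.895 to 1.69 CPM (median 1.24) at E17.5 and 5.28 to 8.81 CPM (median 6.61) at P7 (log2 fold change 2.39 ± 0.16, adjusted p = 8.59e-09), without overlap. The log2 fold change was 1.33 for Egr1, 0.49 for Junb, 1.38 for Fosl2 and 2.33 for Egr2. Npas4 fell by 1.26 and Nr4a3 by 1.37, and Arc was not called at −0.14 (−0.21 and called lower without P7 replicate 4). All of these but Fosl2 stayed under 10 CPM in the median library of either age. In the immediate early list, Jun (−0.23) fell and Fosb, Egr3 and Egr4 did not pass the filter on low counts.

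Cholesterol synthesis and glucose use changed little as groups. Of 22 cholesterol genes, 8 rose and 10 fell, and of 23 genes of glycolysis and glucose uptake, 10 rose and 8 fell, shares near those of all genes, with median log2 fold changes of −0.093 and 0.026. Apoe, the lipid carrier of astrocytes, stood at 66.2 to 242 CPM (median 126) at E17.5 and 623 to 917 CPM (median 839) at P7 (log2 fold change 2.58 ± 0.26, adjusted p = 5.26e-07). Pfkp, the platelet type of phosphofructokinase, stood at 347 to 609.8 CPM (median 493) at E17.5 and 90.5 to 128 CPM (median 97.6) at P7 (log2 fold change −2.17 ± 0.14, adjusted p = 6.85e-09). Both were without overlap, Apoe higher and Pfkp lower at P7. On the log2 scale the change was −0.39 for Hmgcs1, 0.74 for the neuronal hydroxylase Cyp46a1, 0.59 for Insig1 and 0.58 for Abcg1. Sqle changed by −0.16 and was not called without E17.5 replicate 6, P7 replicate 1 or P7 replicate 2 (−0.11, −0.13 and −0.13), nor without P7 replicates 1 and 6 together (−0.086). Of the glucose genes, the hexokinases Hk1 and Hk2 changed by −0.27 and 0.53, the dehydrogenase subunits Ldha and Ldhb by −0.31 and 0.61, the carrier Slc2a1 of the blood-brain barrier by −0.65, Aldoc by 0.90 and Pdk4 by 0.97 on the log2 scale, and Pkm was not called (−0.023). The neuronal carrier Slc2a3 changed by −0.17, and its call was lost without any 1 of E17.5 replicates 1, 5 or 6 or of P7 replicates 1, 2 or 4 (−0.15 to −0.12). In the cholesterol synthesis list, Cyp51 (−0.10), Nsdhl (0.081) and Dhcr7 (−0.031) were not called. In the glycolysis and glucose uptake list, Gpi1 (−0.11), Gapdh (0.10), Pgk1 (0.026) and Pgam1 (−0.039) were not called and Pgam2 did not pass the filter on low counts. Cyp51 was called lower without E17.5 replicate 4 or P7 replicate 4 or E17.5 replicates 3 and 4 together (−0.16 to −0.14). Gapdh was called higher without E17.5 replicate 5 or 6 or P7 replicate 1 or 3 (0.12 to 0.15). Gpi1 was called lower without E17.5 replicates 3 and 4 together (−0.24).

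Over all genes, 12 rises were the largest among genes called without overlap and with a mean of at least 20 CPM at P7. Besides Mobp, Gabra6, Gfap, Enpp6, Agt, Gabrd and Cldn11, given above, they included Mybpc3, Gpr37l1, Ifi203 and Aldh1a1. Mybpc3 (chr2:91118144-91136516, plus strand), known as a protein of heart muscle filaments, stood at 0.0895 to 0.533 CPM (median 0.244) at E17.5 and 70.97 to 99.3 CPM (median 73.6) at P7 (log2 fold change 8.19 ± 0.22, adjusted p = 4.94e-12). Gpr37l1 (chr1:135160234-135167681, minus strand), a receptor of Bergmann glia and astrocytes, stood at 0.944 to 8.59 CPM (median 2.42) at E17.5 and 171 to 221 CPM (median 203) at P7 (log2 fold change 5.94 ± 0.38, adjusted p = 5.95e-09). Ifi203 (chr1:173920407-173942672, minus strand), of the interferon-inducible nucleic acid sensor family, stood at 0.384 to 0.587 CPM (median 0.428) at E17.5 and 19.6 to 28.3 CPM (median 25.5) at P7 (log2 fold change 5.75 ± 0.14, adjusted p = 3.76e-12). In each the lowest P7 library lay above the highest E17.5 library. Aldh1a1 (chr19:20492715-20643465, plus strand), which makes retinoic acid, stood at 0.189 to 0.593 CPM (median 0.545) at E17.5 and 17.1 to 30.4 CPM (median 25.5) at P7, a log2 fold change of 5.73. Ifi203 lies in a cluster of similar genes that share reads, so its level is uncertain.

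The 12 largest falls, with at least 20 CPM at E17.5, were Igf2bp1, Slit1, Foxp2, Has2, Lmx1a, Bcl11b and Meis2, given above, and Fgf15, Fgf3, Lrp2, Cdh9 and Scn9a. Fgf15 (chr7:144896531-144900953, plus strand), a fibroblast growth factor of the embryonic hindbrain and midbrain, stood at 44.5 to 57.8 CPM (median 48.8) at E17.5 and 0.223 to 1.46 CPM (median 0.837) at P7 (log2 fold change −5.82 ± 0.24, adjusted p = 1.09e-10). Fgf3 (chr7:144838083-144844436, plus strand), of the same family, stood at 41.4 to 72.9 CPM (median 54.8) at E17.5 and 1.21 to 2.62 CPM (median 2.17) at P7 (log2 fold change −4.84 ± 0.18, adjusted p = 5.73e-11). Cdh9 (chr15:16728756-16857094, plus strand), a cadherin of synapse specificity, stood at 64.8 to 149 CPM (median 80.7) at E17.5 and 3.38 to 6.71 CPM (median 5.01) at P7 (log2 fold change −4.21 ± 0.23, adjusted p = 1.06e-09). Each P7 library was below each E17.5 library. Lrp2 (chr2:69424340-69586065, minus strand), an endocytic receptor of neuroepithelium, changed by −4.28 and the sodium channel Scn9a (chr2:66480080-66634962, minus strand) by −4.14 on the log2 scale.

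The same mice gave cortex and hippocampus, and the difference of the change between regions was tested as an interaction in the 36 WT libraries, with mouse as a block. The change differed between cerebellum and cortex in 13658 of 19504 genes (70%) and between cerebellum and hippocampus in 12949 (66.4%). Called higher at P7 in cerebellum and beyond both other regions were 2665 genes (13.7%), and called lower beyond both were 3046 (15.6%). The cell cycle separated the regions. All 24 mitosis genes were higher beyond both, against 13.7% of all genes, with a median log2 fold change of 0.51 in cerebellum, −2.54 in cortex and −2.06 in hippocampus, where all 24 were below 0. Of the 27 DNA replication genes 20 were higher beyond both, with medians of −1.71 in cortex and −1.41 in hippocampus. In cortex Mki67 ran from 109.7 to 304 CPM at E17.5 and from 20.3 to 33.8 CPM at P7, and in hippocampus from 154 to 282 CPM and from 38.4 to 51.9 CPM. Its P7 libraries lay below its E17.5 libraries in both regions.

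Granule progenitor and migrating neuron genes that other regions also use mostly parted in the same way, while the maturation genes mostly did not. Of the progenitor markers 9 of 14 were higher beyond both, and of the migrating neuron genes 9 of 15. For Pax6 the log2 fold change was 0.68 in cerebellum, −2.496 in cortex and −2.19 in hippocampus, and for Neurod1 it was 1.99, −1.10 and −1.49. Of the 19 granule neuron maturation genes 7 were higher beyond both. The medians of that list were 1.42 in cerebellum, 1.18 in cortex and 0.74 in hippocampus. Of the 18 genes tested in each other region, 4 were below 0 in cortex and 6 in hippocampus. Against most of their list, the nuclear factor I genes had log2 fold changes below 0 in both other regions, with Nfib at −2.46 in cortex and −1.79 in hippocampus and Nfix at −1.06 and −1.59. Of the 31 postsynaptic genes 16 and of the 41 axon genes 19 were lower beyond both, against 15.6% of all genes. The 33 vesicle genes held 7, a share nearer to that of all genes. The median log2 fold change of the vesicle list was 0.21 in cerebellum, 1.71 in cortex, where 32 genes were tested, and 1.46 in hippocampus. Of the 17 ionotropic glutamate receptor genes 9 were lower beyond both, and of the 16 GABA-A and chloride genes 7. The 19 myelin genes held 9 that were higher beyond both. List medians were 3.65 in cerebellum, 2.44 in cortex over the 17 genes tested there and 2.08 in hippocampus over 16 genes. Higher beyond both were 5 of the 29 Purkinje cell maturation genes and 1 of the 14 oligodendrocyte precursor genes, against 13.7% of all genes. The precursor list had medians of 1.01 in cerebellum, 2.28 in cortex and 2.34 in hippocampus.

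**Figure D5:**
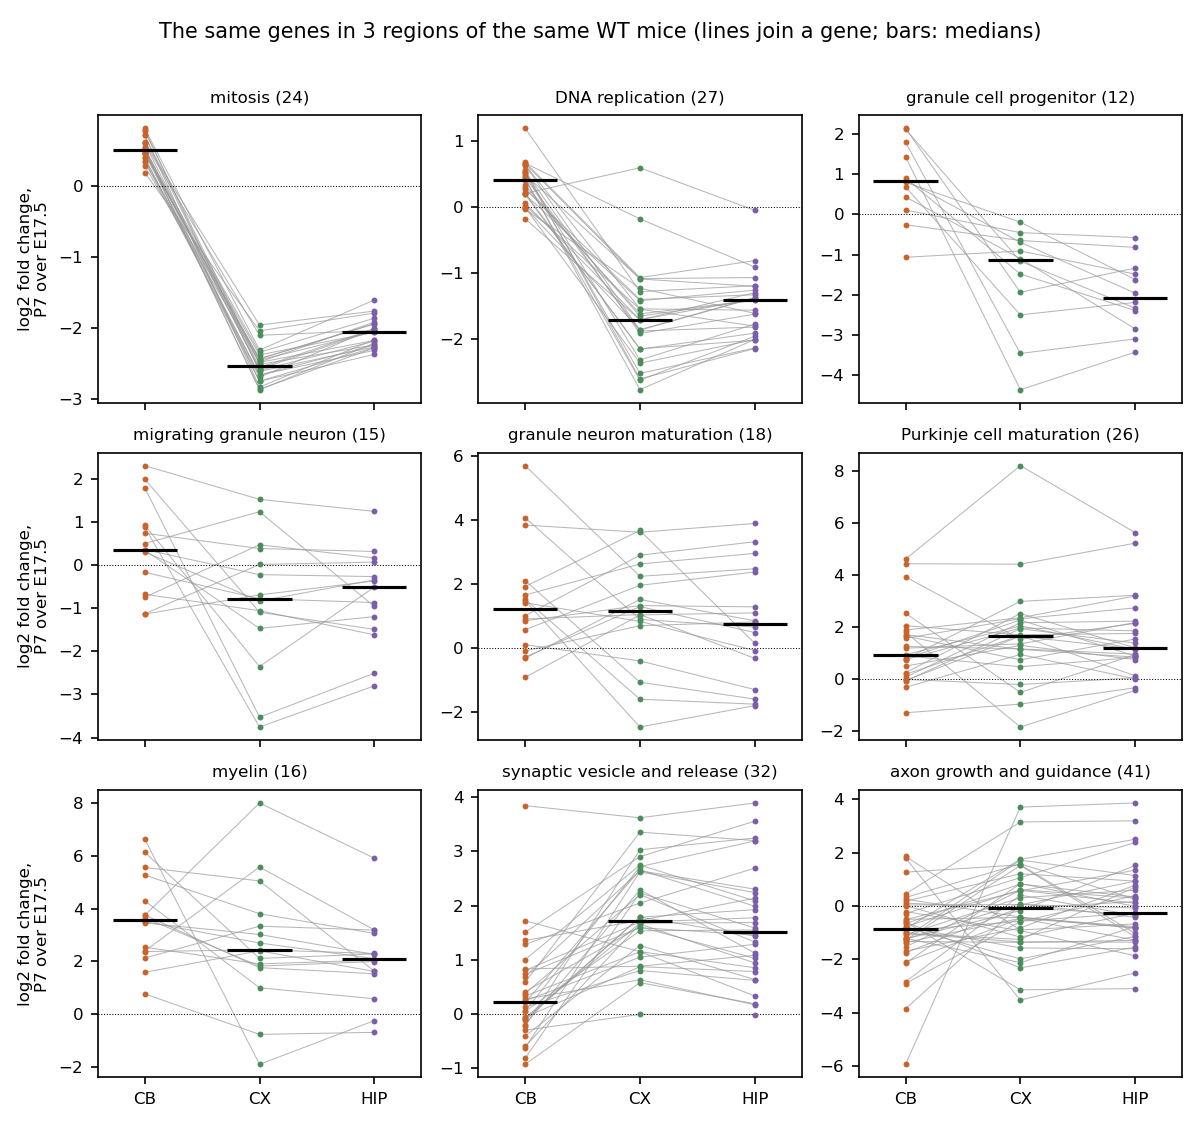
Log2 fold change, P7 over E17.5, of the members of 9 lists in cerebellum (CB), cortex (CX) and hippocampus (HIP) of the same WT mice, with a line for each gene tested in all 3 regions, a bar at the median and the number of genes in the panel title. Mitosis genes lie above 0 in cerebellum and below 0 in the other regions, and the bars of the vesicle panel lie higher in cortex and hippocampus than in cerebellum.

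Among the 10 genes furthest beyond both other regions in the upward direction were Gabra6, Ifi203, Ltbp2, Mndal, Mfap4, Nhlh1, Insm1, Cntn2 and Mybpc3. Insm1, a transcription factor of progenitors that are about to become neurons, stood at 49.8 to 71.6 CPM (median 58.9) at E17.5 and 152 to 198 CPM (median 169) at P7 (log2 fold change 1.51 ± 0.10, adjusted p = 5.48e-09), and its change was −4.13 in cortex and −3.003 in hippocampus. Nhlh1, a factor of newborn granule neurons, stood at 10.6 to 18.7 CPM (median 14.3) at E17.5 and 33.8 to 44.7 CPM (median 39.5) at P7 (log2 fold change 1.43 ± 0.13, adjusted p = 1.78e-07), and changed by −4.36 and −3.42 in cortex and hippocampus. Cntn2 changed by −3.53 and −2.51 there, and Mfap4 by −3.46 and −3.09. These genes rose in cerebellum without overlap and had log2 fold changes below 0 in both other regions. Ltbp2, a matrix protein that binds latent growth factor complexes, stood at 0.537 to 1.09 CPM (median 0.723) at E17.5 and 19.9 to 35.2 CPM (median 22.7) at P7, a log2 fold change of 5.09, and changed by −1.40 in cortex and −0.86 in hippocampus. Mndal, of the same family and cluster as Ifi203 and uncertain for the same reason, changed by 4.73 in cerebellum, −2.21 in cortex and −0.81 in hippocampus.

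The 10 furthest in the downward direction were Lypd1, Cdh9, Sst, Snhg11, Creg2, Gng4, Cobl, Slc6a7, Nwd2 and Cntn4. Lypd1, a modulator of nicotinic receptors, stood at 67.4 to 122 CPM (median 83.8) at E17.5 and 13.5 to 18.3 CPM (median 15.4) at P7 (log2 fold change −2.53 ± 0.16, adjusted p = 4.46e-09), and its log2 fold change was 4.47 in cortex and 4.16 in hippocampus. Snhg11, a neuronal transcript that GENCODE M21 classes as protein coding, stood at 124 to 325 CPM (median 248) at E17.5 and 21.6 to 55.01 CPM (median 25.04) at P7 (log2 fold change −2.94 ± 0.27, adjusted p = 2.04e-07), and changed by 4.21 and 2.23. Both fell in cerebellum without overlap and had log2 fold changes above 0 in the other regions. Sst changed by 2.72 in cortex and 3.64 in hippocampus, and Cdh9 by 1.87 and 2.41. In cerebellum the log2 fold change was −2.39 for the G protein subunit Gng4, −2.94 for the actin nucleator Cobl, −1.88 for Nwd2, −1.98 for the adhesion protein Cntn4, −0.85 for Creg2 and −0.62 for the proline transporter Slc6a7, and all of these had log2 fold changes above 0 in both other regions.

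The Cul3+/- cerebellum, 6 mice at each age that the WT comparison does not use, gave 6671 genes higher (37.5%) and 6603 lower (37.1%) of 17804 tested. Of the 13319 genes called in WT, 13206 were tested there, 11917 were called in the same direction and 0 in the opposite one, and of the 3263 that changed at least 2-fold in WT and were tested, 3200 were called in the same direction. For single genes the log2 fold change in Cul3+/- mice was 0.46 for Mki67, 0.94 for Zic1, 1.97 for Neurod1, 9.72 for Gabra6, −3.67 for Foxp2 and −5.09 for Igf2bp1. In the lists, 23 of the 24 mitosis genes, 13 of the 14 progenitor genes called in WT and 19 of the 19 myelin genes were called in the same direction. A difference between genotypes in these changes was not tested here. At each age the Cul3+/- mice carry the same sample name prefixes as the WT mice. Litters, days of dissection or runs that may go with age are therefore not separated from age by this comparison.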

How the data were processed

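RNA was measured in 108 libraries, 6 for each combination of age, region and genotype, of which the WT cerebellum at E17.5 and P7 gave the 12 used here. As deposited by the authors, the values are expected counts per gene from RSEM (version 1.3 in the submitters' processing notes), after trimming with Cutadapt 1.14 and alignment with STAR 2.5.3a to GRCm38. The table held 53465 genes, 53274 of them with a symbol, 5.76% of its values were not whole, and 0 columns could not be assigned to a sample. Reads of near-identical copies were divided by estimate, which makes such genes uncertain.

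After rounding to whole numbers, low genes were removed with filterByExpr at its minimum count of 10 and minimum total of 15. Libraries were normalised by TMM, and edgeR 4.0.16 (R 4.3.3) was used for a quasi-likelihood fit of P7 against E17.5, with Benjamini-Hochberg adjustment over all genes tested and a threshold of 0.1. The SE was taken as the absolute log2 fold change over the root of the F statistic. The difference from cortex and hippocampus was tested in 36 WT libraries with the mouse as a block. The labels do not say that replicates of an age came from separate litters, so p-values measure the spread between these mice. Sample name prefixes are nested within ages, so no value within a prefix could be compared between ages.

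The gene lists, 36 in all, and the choice of this comparison were made with earlier results of these data known. Named were the key members of each list and up to 3 others with the largest change among those called without overlap, the 12 largest rises and falls of at least 20 CPM at the higher age, and 10 genes in each direction beyond both regions. En2, Mcm6, Rfc3, Boc, Ccnd2, Gli2, Sufu, Nfia, Nfib, Bhlhe22, Kitl, Plcb4 and Slc17a6, and members listed because 5 or fewer of their list behaved alike, were chosen after their values were seen. Some members are counted in their lists but are not reported here by name. DESeq2 1.42.0, other normalisations and filters and left-out replicates were tried as alternatives. The tests were checked on simulated data. Promoters came from RefSeq (GRCm38.p6), and gene coordinates from GENCODE M21 on GRCm38.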

Additional observations from a re-analysis of the deposited data

Results flagged for a closer look

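A library stood apart from the other 5 of its age in 20 of 336 groups of levels examined by Dixon's ratio, where chance alone flags about 1 in 20 groups. The summed level of the meninges list in E17.5 replicate 1 was 235 CPM, the highest of its age, and the nearest library had 138 CPM. In P7 replicate 2 the meninges list summed to 1309 CPM, the highest of its age, and the nearest library had 949.7 CPM. The summed level of the choroid plexus list in P7 replicate 6 was 2056 CPM, the highest of its age, and the nearest library had 618 CPM. In E17.5 replicate 3 the forebrain list summed to 75.5 CPM, the highest of its age, and the nearest library had 71.8 CPM. The summed level of the midbrain and brainstem list in P7 replicate 6 was 9.32 CPM, the highest of its age, and the nearest library had 5.57 CPM. In E17.5 replicate 4 the thyroid hormone list summed to 1283 CPM, the highest of its age, and the nearest library had 1159.7 CPM. The summed level of the thyroid hormone list in P7 replicate 6 was 2916 CPM, the highest of its age, and the nearest library had 1580.5 CPM. In P7 replicate 6 the neurotrophins and growth factors list summed to 1932 CPM, the highest of its age, and the nearest library had 1839 CPM.

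Among single genes, these libraries were set apart in level from the others of their age. E17.5 replicate 1 stood apart in Grin2d (19.998 CPM, highest, nearest 16.1 CPM). E17.5 replicate 2 stood apart in Grin2c (18 CPM, highest, nearest 15.4 CPM). E17.5 replicate 3 stood apart in Tubb3 (1675 CPM, highest, nearest 1499 CPM). E17.5 replicate 4 stood apart in Pax2 (8.97 CPM, highest, nearest 5.87 CPM). E17.5 replicate 5 stood apart in Enpp6 (1.38 CPM, highest, nearest 0.503 CPM) and Ttr (46 CPM, highest, nearest 3.13 CPM). E17.5 replicate 6 stood apart in Vim (726 CPM, highest, nearest 636 CPM). P7 replicate 2 stood apart in Dcn (61.1 CPM, highest, nearest 45.2 CPM), Sox10 (16.9 CPM, lowest, nearest 26.1 CPM) and Sox14 (0 CPM, lowest, nearest 0.478 CPM). P7 replicate 3 stood apart in Cbln3 (67.1 CPM, highest, nearest 45.7 CPM). P7 replicate 6 stood apart in Ttr (1568 CPM, highest, nearest 364 CPM).

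The change from E17.5 to P7 differed by region in the interaction test. In 13658 genes the change in cerebellum differed from that in cortex, in 12949 from that in hippocampus, and all 24 mitosis genes rose in cerebellum beyond both regions.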

How the results depend on the processing

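The counts of genes higher and lower at P7, those past 2-fold and those beyond cortex and hippocampus stayed within 1.5 times of the reported count under every alternative run, apart from 3 values. Without a low-count filter 2943 genes were at least 2-fold higher and 3133 at least 2-fold lower, since more genes of low count were tested. In edgeR's test against a 2-fold change (glmTreat) 1093 genes were at least 2-fold lower, a stricter test of the same fold. Of the 308 named genes 308 kept direction and call with upper-quartile normalisation, 307 with DESeq2 and 305 without a filter, and Gli1 (0.27) was called higher without a filter, while Slc2a3 (−0.14) and Sqle (−0.13) were not called. Alas2 was called lower with DESeq2 (−0.35), and Folr1 higher in the likelihood ratio test (1.57). Without P7 replicates 1 and 6, a setting chosen after seeing the data, as was leaving out E17.5 replicates 3 and 4, Folr1 (−1.10) and Ttr (−2.54) turned to lower at P7. Both genes are themselves members of the choroid plexus list, whose sum was highest in those libraries. The part of choroid plexus tissue was not tested.

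The replicate numbers do not pair the ages: deviations of same-numbered mice correlated between −0.325 and 0.0982. Adding the replicate number to the fit as a block gave 6327 genes higher and 6522 lower. In that blocked fit Gli1 was called higher (0.26) and Ttr was not called (1.33), and the other named genes kept their calls. Without the mouse block, 13372 genes differed from cortex and 12588 from hippocampus.

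Depth limits genes of few reads: a fold from under 10 reads over the E17.5 libraries, as for Gabra6 and Mobp, has no firm size. Small changes near the threshold depend on single libraries, as given with each gene.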
